A study of Mus musculus with 56 samples.

Results

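Glycolysis splits glucose to pyruvate, and the pentose phosphate pathway draws glucose 6-phosphate off it to make NADPH and ribose phosphate. The genes described here are 34 mouse genes chosen by name for these roles. They comprised 2 glucose transporters, 9 enzymes of the preparatory phase from hexokinase to triosephosphate isomerase, 7 enzymes of the payoff phase from glyceraldehyde-3-phosphate dehydrogenase to pyruvate kinase, 4 genes of lactate formation and transport, 2 enzymes that set fructose 2,6-bisphosphate, 4 genes of the HIF-1 oxygen response and 6 pentose phosphate enzymes. Each of 2 count tables listed 47937 genes, and all 34 members passed the filter on low counts in both, among 13839 genes tested in the Odc experiment and 13897 in the Dohh experiment.

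RNA was sequenced from CD4+ T cells of C57BL/6 mice, taken from spleen and lymph node, activated through CD3 and CD28 and analysed on day 4 of polarization to TH1, TH2, TH17 or Treg cells. TH1 cultures held IL-12 and anti-IL-4, TH2 cultures IL-4 and anti-IFN-γ, TH17 cultures IL-6, TGF-β, IL-1β and antibodies to IFN-γ and IL-4, and Treg cultures TGF-β with those antibodies. The knockout groups, written Odc-/- (ODC_KO in the labels) and Dohh-/- (DOHH_KO), carried Cre under the CD4 promoter with Odc flox/flox or Dohh flox/flox, and the WT groups lacked Cre. The Odc experiment held 4 WT and 4 Odc-/- libraries per subset, except 3 Odc-/- libraries in TH2 (replicate 1 was not analysed here), and the Dohh experiment 3 WT and 3 Dohh-/- libraries per subset. Cre under the CD4 promoter deletes in the thymus, so CD8 T cells of these mice share the deletion. The sequence left by the deletion cannot be read from whole-gene counts. Odc1 counts differed between Odc-/- and WT by log2 fold changes of 0.26 to -0.40 (adjusted p = 0.0416 in TH17, the one subset past the test), and Dohh counts were higher in Dohh-/- cells by 0.41 (adjusted p = 0.189, TH17) to 1.43 (adjusted p = 0.000132, TH1). Since these counts do not check the labels, Odc-/- and Dohh-/- stand here for libraries so labelled.

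Levels are given as CPM, counts relative to the library total scaled by TMM factors, and log2 fold changes are knockout minus WT with SE. A member rose or fell where its adjusted p (edgeR's quasi-likelihood test, Benjamini-Hochberg over all genes of the table) was below 0.05, and it was called where the change also exceeded 2-fold. A library named after the word without was left out of the fit, one at a time. The p-values measure the spread between these cultures. In bulk RNA, fewer cells of a type and less RNA per cell cannot be told apart.

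Activated T cells are known for fast glycolysis with lactate as the end product even where oxygen is present. Hypoxia-inducible factor 1 (HIF-1), a pair of HIF-1α and ARNT, binds a short DNA core in the promoters of many glycolytic genes, and prolyl hydroxylases mark HIF-1α for breakdown when oxygen is present. Several steps are run by isoenzymes from different genes, and the isoenzyme in use differs between tissues.

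Library totals ranged from 5905374 to 9145214 counts in the Odc experiment and from 6572148 to 12576933 in the Dohh experiment. The summed level of 8 T cell markers, none at 0 in any library, was 2690.0 to 4635 CPM in WT and 2097 to 3997 CPM in Odc-/-, and 3923 to 4718 CPM in WT and 1649 to 3355 CPM in Dohh-/-. The defining factors Tbx21 (TH1), Gata3 (TH2) and Foxp3 (Treg) and the TH17 cytokine Il17a were each highest in their own subset in WT and in knockout cells of both tables, and Foxp3 in Treg cells was at 478 ± 112 CPM in WT and 408 ± 84.2 CPM in Odc-/- and at 576 ± 18.8 CPM in WT and 106 ± 63.5 CPM in Dohh-/-. Cd4 itself fell in Dohh-/- cells by log2 fold changes of -4.65 to -3.60 (adjusted p = 1.27e-09 or lower). The summed level of 10 myeloid markers moved with the Dohh-/- label: 40.3 to 42.6 against 592 to 11760.0 CPM in TH17, 28.7 to 32.2 against 364 to 4922 in Treg, 21.9 to 31.6 against 29.8 to 842 in TH2 and 23.9 to 24.5 against 7.25 to 245 in TH1. The Odc experiment's sum was 22.7 to 49.6 CPM in WT and 110.1 to 793 CPM in Odc-/- Treg, with 7 of 9 tested markers called higher, and 22 to 55.6 and 52.7 to 619 CPM in TH17, with 8 called higher, against 2 in TH1 and 1 in TH2. Of 9 basophil and mast cell markers, 8 or 9 were called higher in each Dohh-/- subset and 7 or 8 in each Odc-/- subset. In the Odc experiment, replicate 1 of the libraries labelled Odc-/- was the one nearest the WT mean for 27, 26 and 22 of 34 members in TH1, TH17 and Treg, and WT replicate 4 was the one nearest the Odc-/- mean for 27, 22 and 21. Of 6 B cell markers, 6, 6, 1 and 6 were called higher in Odc-/- TH1, TH2, TH17 and Treg, where their sum was 3.3 to 105 CPM in WT and 11 to 560.2 CPM in Odc-/-, and 0 to 2 of 5 tested in each Dohh-/- subset (5.38 to 61.8 against 5 to 55.4 CPM). The sum of 6 CD8 T and NK cell markers was 42.1 to 72.9 CPM in WT and 412 to 641 CPM in Odc-/- Treg cells, with 5 called higher, against 1 to 4 called higher in the other Odc-/- subsets. That sum in the Dohh experiment was 27.3 to 128 CPM in WT and 74.5 to 878 CPM in Dohh-/-, with 3 or 4 of 5 tested called higher in each subset and 1 lower in TH1 and TH2. The 6 erythroid markers summed to 0 to 3.07 CPM in WT and 0 to 2.83 CPM in Odc-/-, and to 0 to 1.36 and 2.31 to 56.3 CPM in WT and Dohh-/-. The mitochondrial share of counts was 0.844 to 1.45% in WT and 1.81 to 2.82% in Odc-/- Treg, 0.994 to 1.25% and 1.28 to 1.73% in TH17 and 1.39 to 1.67% and 1.73 to 1.79% in TH1 cells, higher in Odc-/- without overlap, and overlapped in TH2. Dohh-/- TH1 libraries held less than WT (0.47 to 0.882% against 1.21 to 1.45%), and the others overlapped with WT. The part of these in the results was not tested.

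The 250 bases before the RefSeq start site are shown for 5 members on which the comparisons turn: the enolase Eno2 and the oxygen sensor Egln3, which fell in most comparisons, the lactate dehydrogenase Ldhb, which fell in Dohh-/- cells and moved both ways in Odc-/- cells, and the lactate transporter Slc16a1 and the transaldolase Taldo1, which rose in most. Their positions in GRCm38.p6 are Eno2 chr6:124769674-124769923 (minus strand), Ldhb chr6:142507958-142508207 (minus strand), Egln3 chr12:54203875-54204124 (minus strand), Slc16a1 chr3:104638414-104638663 (plus strand) and Taldo1 chr7:141391910-141392159 (plus strand). Capitals mark ACGTG or GCGTG, the core letters of the hypoxia response element, and CACGTG, the E-box, which holds ACGTG on both strands, each read on both strands.
Eno2: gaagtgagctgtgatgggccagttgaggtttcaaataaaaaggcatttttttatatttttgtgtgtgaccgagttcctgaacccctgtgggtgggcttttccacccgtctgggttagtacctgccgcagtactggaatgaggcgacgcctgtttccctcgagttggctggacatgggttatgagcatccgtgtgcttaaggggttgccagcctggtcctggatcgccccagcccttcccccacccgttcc
Ldhb: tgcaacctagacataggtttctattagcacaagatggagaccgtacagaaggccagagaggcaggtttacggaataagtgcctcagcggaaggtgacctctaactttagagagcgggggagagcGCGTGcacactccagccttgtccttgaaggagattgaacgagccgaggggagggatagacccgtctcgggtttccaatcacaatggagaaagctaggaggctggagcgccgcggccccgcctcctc
Egln3: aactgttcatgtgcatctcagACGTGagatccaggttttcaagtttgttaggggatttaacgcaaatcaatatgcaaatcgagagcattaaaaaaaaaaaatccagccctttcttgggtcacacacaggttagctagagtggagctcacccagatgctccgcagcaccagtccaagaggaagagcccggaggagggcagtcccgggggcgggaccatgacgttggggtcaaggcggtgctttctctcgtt
Slc16a1: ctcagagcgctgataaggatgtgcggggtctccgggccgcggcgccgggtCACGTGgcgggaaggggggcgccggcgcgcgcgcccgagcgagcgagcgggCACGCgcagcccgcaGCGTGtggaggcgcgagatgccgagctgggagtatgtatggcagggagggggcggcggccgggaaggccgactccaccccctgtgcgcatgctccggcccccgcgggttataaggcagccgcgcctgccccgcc
Taldo1: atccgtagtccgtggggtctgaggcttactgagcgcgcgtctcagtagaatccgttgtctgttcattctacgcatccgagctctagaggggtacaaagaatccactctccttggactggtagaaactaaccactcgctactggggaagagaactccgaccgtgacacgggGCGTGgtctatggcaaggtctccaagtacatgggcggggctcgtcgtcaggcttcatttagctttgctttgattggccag

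The hypoxia core letters occurred in 38 of 46 windows of the members, covering 30 of the 33 members with a window, where 38.6% of all 32851 windows of the same length held them. CACGTG occurred in 6 windows of 6 members, against 6.0% of all windows. Ldhb held GCGTG with its first base 126 bases before the start, Egln3 ACGTG at 229 bases and Taldo1 GCGTG at 80 bases. Slc16a1 held CACGTG at 200 bases, GCGTG at 134 bases and GCGTG on the other strand at 149 bases. Eno2 had none of these letters in its window, which says nothing of sites elsewhere.

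Most members that changed in the libraries labelled Odc-/- fell, in every subset, while the libraries labelled Dohh-/- combined falls with rises. In Odc-/- TH1 cells the called-lower members were 11 of 34 members (32.4%) against 11.3% of all genes, and Rpia was the one member called higher, against 10.2% of all genes. The called-lower share in Odc-/- TH2 cells was 8 of 34 members (23.5%) against 13.6% of all genes, in TH17 cells 9 (26.5%) against 7.21% and in Treg cells 17 (50%) against 10.1%. No member was called higher there, where 11.5%, 8.35% and 13.9% of all genes were. With all libraries the falls ran above the background in each subset and most of all in Treg cells. There the CD8 T and NK cell markers, the myeloid markers and the mitochondrial share also lay furthest from WT, and their part was not tested. Yet by a test against 2-fold 1 member was lower in TH1 (2.94%, 3.47% of all genes). The median log2 fold change of the members was -0.65, -0.51, -0.62 and -1.03 in TH1, TH2, TH17 and Treg, beside 0.02, -0.002, 0.05 and 0.07 over all genes. Without replicate 1 of every Odc-/- subset, or of TH17 alone, 14 members were called in TH17, against 9 with all libraries. Without Odc-/- TH2 replicate 2, 5 of 34 rather than 8 were called in TH2, close to the 13.6% of all genes called lower with all libraries.

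In Dohh-/- TH17 cells 16 of 34 members (47.1%) against 14.1% of all genes were called lower, and 3 members (8.82%) were called higher against 17.3%. In Dohh-/- TH1 cells 9 were called lower (26.5%, 14.2% of all genes) and 5 higher (14.7%, 14.8%), but only 1 higher with unscaled totals (10.4%). In TH2 cells 5 were called lower (14.7%, 11.6% of all genes) and 4 higher (11.8%, 14.3%), and in Treg cells 7 lower (20.6%, 15.2%) and 4 higher (11.8%, 17.5%). The falls lay furthest above the background in TH17, next in TH1 and closer to it in TH2 and Treg, and the rises at or below it, with the myeloid marker sum highest in TH17 and next in Treg. The members' median log2 fold change was 0.01, -0.03, -0.96 and -0.11, beside 0.01, 0.02, 0.01 and 0.03 over all genes. Without Dohh-/- TH1 replicate 2, 7 members (20.6%) were called in TH1, against 14 (41.2%) and 29.1% of all genes with all libraries.

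With the adjusted p alone and no fold threshold, 19, 18, 18 and 24 of 34 members fell in Odc-/- TH1, TH2, TH17 and Treg cells, where 27.7, 29.3, 22.2 and 26.9% of all genes did. By the same rule 5, 7, 6 and 7 members rose, where 29.1, 29.9, 25.6 and 32.9% of all genes did. In Dohh-/- cells 10, 7, 19 and 9 members fell against 24.1, 21.5, 24.9 and 25.0% of all genes. There 9, 13, 7 and 11 members rose against 25.9, 23.8, 27.0 and 28.4%. In both directions together 24, 25, 24 and 31 members passed in Odc-/- cells, where 56.8, 59.2, 47.8 and 59.8% of all genes did, and 19, 20, 26 and 20 in Dohh-/- cells, where 50, 45.3, 52 and 53.4% did. The pentose phosphate genes supplied 3 to 5 of the rises in every comparison and no fall.

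**Figure D1:**
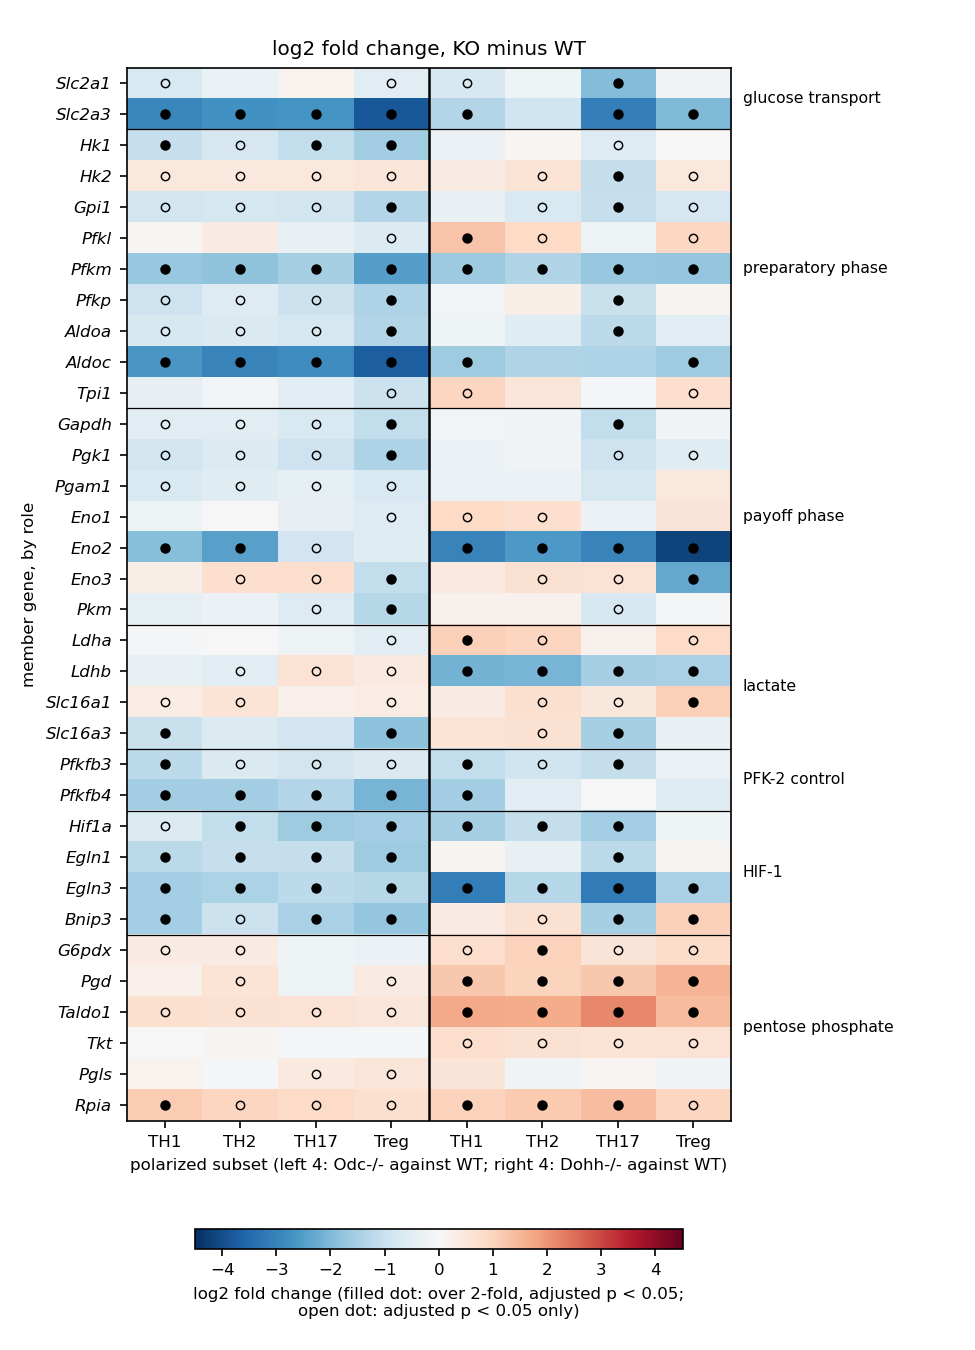
Rows are the 34 members by role and columns the 8 comparisons, colour gives the log2 fold change of knockout minus WT, filled dots mark members called over 2-fold and open dots those past the adjusted p alone. The Odc-/- columns are mostly blue down to the pentose phosphate rows, and the 16 called-lower members of Dohh-/- TH17 exceed the 9, 5 and 7 of the other Dohh-/- subsets.

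Of the 2 glucose transporters, the high-affinity Slc2a3 (GLUT3) fell in 7 of 8 comparisons, and Slc2a1 (GLUT1), the main transporter of activated T cells, fell in 4. Slc2a3 (ENSMUSG00000003153.10, chr6:122727809-122801640, minus strand, GRCm38) varied widely between libraries of 1 group. In TH1 cells, Slc2a3 was at 1870.0, 1746, 1683 and 908 CPM in WT and 663, 40.6, 48.7 and 64.7 CPM in Odc-/-. Slc2a3 in TH2 cells gave 1982, 1670.0, 1853 and 1374 CPM in WT and 147, 394 and 239.6 CPM in Odc-/-. All Odc-/- values lay below all WT values in these subsets, with TH1 replicate 1 far above the rest of its group. In TH17 cells, Slc2a3 was at 861, 783, 849.7 and 300.2 CPM in WT and 318, 25.2, 47.6 and 43.3 CPM in Odc-/-. Slc2a3 in Treg cells gave 791, 566, 806 and 273 CPM in WT and 83.6, 29.3, 30.3 and 30.9 CPM in Odc-/-. The TH17 groups overlapped through WT replicate 4 and Odc-/- replicate 1, and the Treg groups were apart. For Slc2a3 the log2 fold changes with SE, Odc-/- minus WT, were -2.93 ± 0.80 in TH1 (adjusted p = 0.00316), -2.72 ± 0.88 in TH2 (adjusted p = 0.0104), -2.68 ± 0.79 in TH17 (adjusted p = 0.00779) and -3.81 ± 0.84 in Treg (adjusted p = 0.000431).

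In TH1 cells, Slc2a3 was at 506, 389 and 431 CPM in WT and 75.2, 74 and 378 CPM in Dohh-/-. Slc2a3 in TH2 cells gave 568, 418 and 454 CPM in WT and 365, 240.5 and 173 CPM in Dohh-/-. No library overlapped, although Dohh-/- TH1 replicate 3 came within reach of the lowest WT library. In TH17 cells, Slc2a3 was at 536, 399 and 616 CPM in WT and 76.4, 56.7 and 51.4 CPM in Dohh-/-. Slc2a3 in Treg cells gave 219, 144 and 178 CPM in WT and 56.6, 45.3 and 33.8 CPM in Dohh-/-. The gap between the groups was widest in TH17 cells. Slc2a3 differed by log2 fold changes with SE, Dohh-/- minus WT, of -1.33 ± 0.44 in TH1 (adjusted p = 0.0172), -0.89 ± 0.44 in TH2 (adjusted p = 0.104), -3.07 ± 0.47 in TH17 (adjusted p = 2.98e-05) and -1.996 ± 0.45 in Treg (adjusted p = 0.00111). Slc2a3 did not pass the test in Dohh-/- TH2 cells. Slc2a3 in Dohh-/- TH1 cells did not pass the test without Dohh-/- replicate 1 or 2 or WT replicate 1 (adjusted p between 0.0582 and 0.0887). Slc2a3 in Odc-/- TH2 cells did not pass the test without Odc-/- replicate 2 (adjusted p = 0.0538).

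Slc2a1 fell in Odc-/- TH1 cells, from 489.5 ± 25.9 CPM in WT to 304 ± 93.7 CPM in Odc-/- (log2 fold change -0.69 ± 0.18, adjusted p = 0.00191), and in Odc-/- Treg cells (-0.49 ± 0.18, adjusted p = 0.0204). In Odc-/- TH17 cells it did not pass the test (0.15 ± 0.18, adjusted p = 0.508). Its largest change was in Dohh-/- TH17 cells, with 497 ± 101 CPM in WT and 130.1 ± 29.1 CPM in Dohh-/- (-1.93 ± 0.28, adjusted p = 1.03e-05), where all Dohh-/- libraries lay below all WT libraries. It also fell in Dohh-/- TH1 cells (-0.72 ± 0.27, adjusted p = 0.0307). Slc2a1 in Dohh-/- TH1 cells did not pass the test without Dohh-/- replicate 3 or WT replicate 1 or 2 (adjusted p between 0.0722 and 0.153). Slc2a1 in Odc-/- Treg cells did not pass the test without Odc-/- replicate 2 or 4 or WT replicate 4 (adjusted p between 0.0606 and 0.0809).

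**Figure D2:**
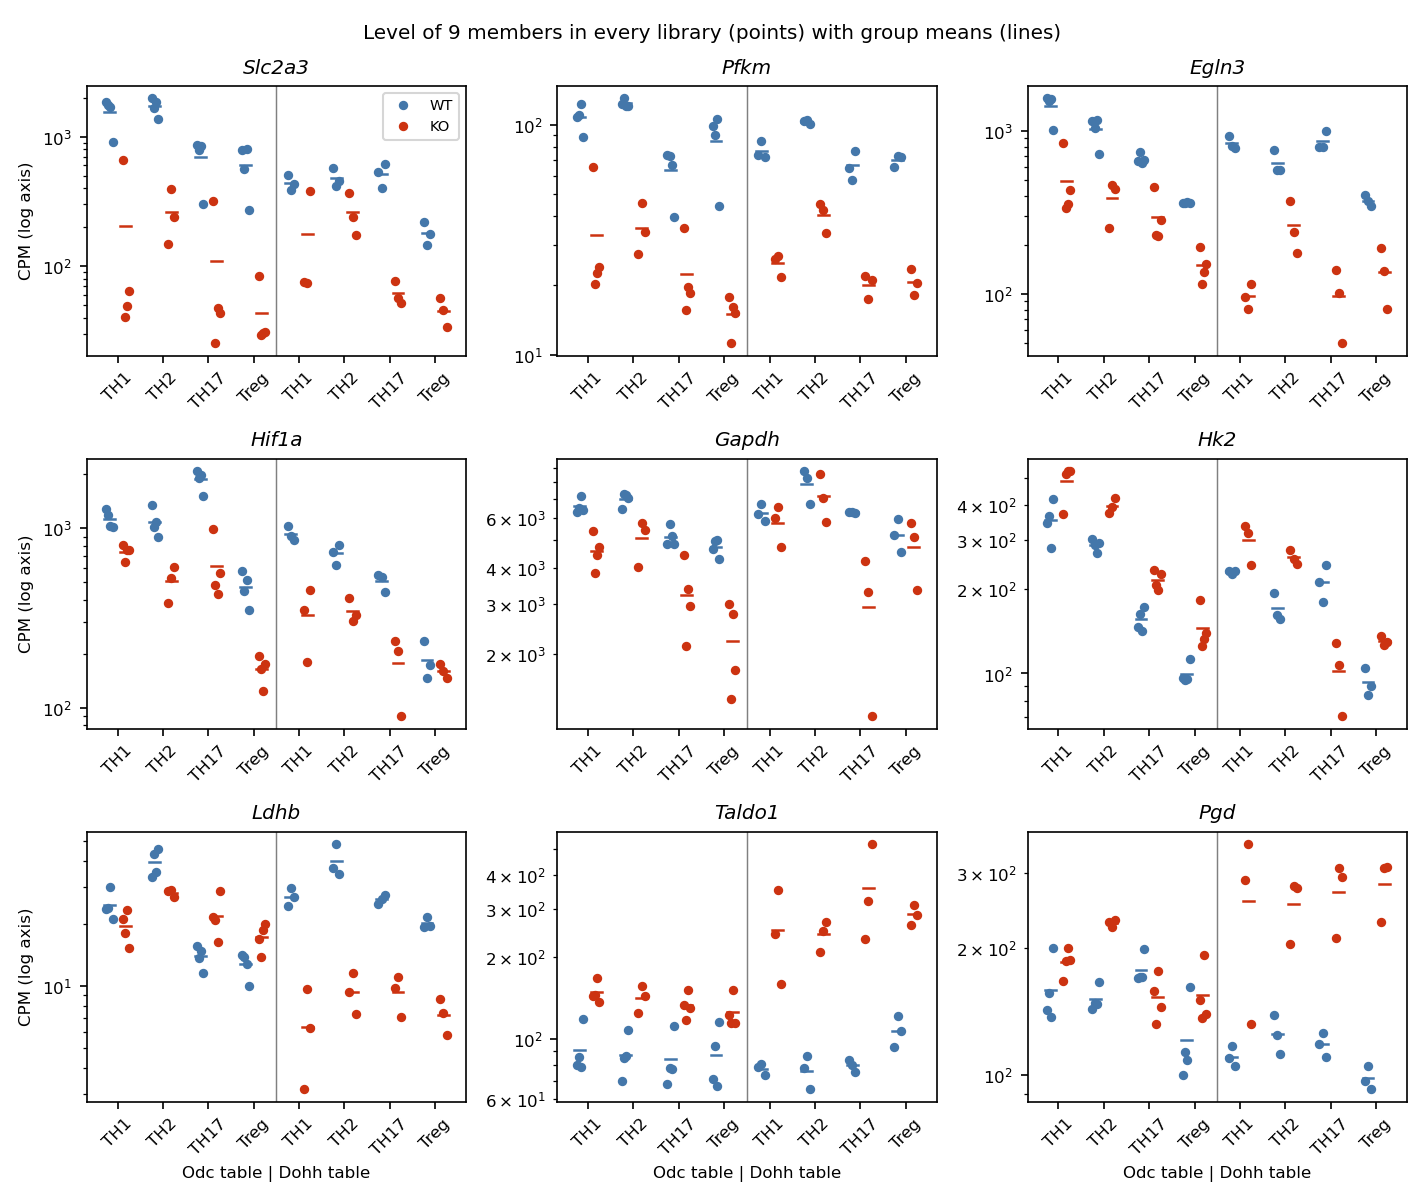
Each panel gives 1 of 9 members, with CPM on a log axis, subsets on the x axis (Odc experiment left, Dohh experiment right), blue points for WT libraries, red points for libraries labelled knockout and lines for group means. Slc2a3 in Odc-/- Treg lies between 29.3 and 83.6 CPM, below every WT library, and Taldo1 in Dohh-/- TH17 between 233 and 518 CPM, above every WT library.

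Hexokinases trap glucose as glucose 6-phosphate, and the pair measured here moved in opposite directions in the Odc experiment. Hk1 fell in all 4 Odc-/- subsets, most in Treg cells, from 533 ± 19.5 to 179 ± 34.5 CPM (log2 fold change -1.57 ± 0.19, adjusted p = 1.13e-07). Its changes in the other Odc-/- subsets were -1.02 ± 0.18 in TH1 (adjusted p = 5.64e-05), -0.74 ± 0.20 in TH2 (adjusted p = 0.00253) and -1.10 ± 0.18 in TH17 (adjusted p = 4.32e-05). Hk2, the inducible hexokinase, rose in the same 4 subsets by log2 fold changes of 0.46 to 0.54 (adjusted p = 0.000465 to 0.00333), all under 2-fold. In Dohh-/- cells Hk2 rose in TH2 and Treg (0.61 ± 0.18 in TH2 with adjusted p = 0.00854, 0.49 ± 0.18 in Treg with adjusted p = 0.0246) and fell in TH17 cells (-1.06 ± 0.18, adjusted p = 6.41e-05). Hk1 fell in Dohh-/- TH17 alone among the 4 (-0.57 ± 0.14, adjusted p = 0.00156), and the Dohh-/- Treg value was 0.000 ± 0.14 (adjusted p = 1). Hk1 in Odc-/- TH1 cells passed the test but under 2-fold without Odc-/- replicate 2, 3 or 4 or WT replicate 2 (log2 fold change between -0.998 and -0.91). Hk1 in Odc-/- TH17 cells passed the test but under 2-fold without Odc-/- replicate 2 (log2 fold change -0.96). Hk2 in Dohh-/- TH17 cells passed the test but under 2-fold without Dohh-/- replicate 3 or WT replicate 3 (log2 fold change between -0.95 and -0.83). Hk2 in Dohh-/- TH2 cells did not pass the test without WT replicate 2 (adjusted p = 0.0524). Hk2 in Dohh-/- Treg cells did not pass the test without Dohh-/- replicate 1, 2 or 3 or WT replicate 2 or 3 (adjusted p between 0.0662 and 0.15).

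Gpi1, glucose-6-phosphate isomerase, fell in 7 of 8 comparisons, by log2 fold changes of -1.33 to -0.78 in Odc-/- cells and of -1.04 (TH17) to -0.69 (TH2) in the 3 Dohh-/- subsets past the test. It was called in Odc-/- Treg (-1.33 ± 0.19 with adjusted p = 1.58e-06) and Dohh-/- TH17 (-1.04 ± 0.18 with adjusted p = 7.44e-05), and the Dohh-/- TH1 value was -0.33 ± 0.18 (adjusted p = 0.128). Gpi1 in Dohh-/- TH17 cells passed the test but under 2-fold without Dohh-/- replicate 3 (log2 fold change -0.94).

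Phosphofructokinase commits sugar to glycolysis, and its muscle-type subunit Pfkm fell by over 2-fold in all 8 comparisons. Pfkm (ENSMUSG00000033065.14, chr15:98092589-98132451, plus strand) had these values in the Odc experiment. Pfkm in TH1 cells gave 108, 110.4, 123 and 88.8 CPM in WT and 65.4, 20.2, 22.7 and 24.1 CPM in Odc-/-. In TH2 cells, Pfkm was at 123, 130.3, 121 and 120.3 CPM in WT and 27.3, 45.5 and 34.1 CPM in Odc-/-. Every Odc-/- library lay below every WT library, and TH1 replicate 1 was the highest of its group. Pfkm in TH17 cells gave 74.1, 72.8, 66.6 and 39.7 CPM in WT and 35.6, 15.7, 19.6 and 18.6 CPM in Odc-/-. In Treg cells, Pfkm was at 99.1, 89.8, 106 and 44.5 CPM in WT and 17.8, 11.2, 16.2 and 15.1 CPM in Odc-/-. WT replicate 4 was the lowest WT library in both subsets and still lay above all Odc-/- libraries. For Pfkm the log2 fold changes with SE, Odc-/- minus WT, were -1.71 ± 0.31 in TH1 (adjusted p = 6.31e-05), -1.79 ± 0.34 in TH2 (adjusted p = 8.35e-05), -1.498 ± 0.31 in TH17 (adjusted p = 0.000438) and -2.49 ± 0.32 in Treg (adjusted p = 5.25e-07).

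Pfkm in TH1 cells gave 73.8, 84.6 and 72.1 CPM in WT and 26.1, 27 and 21.8 CPM in Dohh-/-. In TH2 cells, Pfkm was at 104, 105 and 101 CPM in WT and 45, 42.6 and 33.7 CPM in Dohh-/-. The WT and Dohh-/- libraries did not overlap. Pfkm in TH17 cells gave 65.1, 57.7 and 76.9 CPM in WT and 21.9, 17.5 and 21.1 CPM in Dohh-/-. In Treg cells, Pfkm was at 65.2, 73.1 and 72.6 CPM in WT and 23.6, 18.2 and 20.4 CPM in Dohh-/-. The TH17 and Treg groups were apart as well. Pfkm differed by log2 fold changes with SE, Dohh-/- minus WT, of -1.62 ± 0.15 in TH1 (adjusted p = 5.96e-08), -1.35 ± 0.15 in TH2 (adjusted p = 5.37e-07), -1.72 ± 0.15 in TH17 (adjusted p = 2.45e-08) and -1.76 ± 0.15 in Treg (adjusted p = 1.09e-08).

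The other subunits followed different courses. Pfkp, the platelet-type subunit, fell in all Odc-/- subsets (-0.92 ± 0.21 in TH1 with adjusted p = 0.000506, -0.59 ± 0.22 in TH2 with adjusted p = 0.026, -0.98 ± 0.21 in TH17 with adjusted p = 0.000478 and -1.39 ± 0.21 in Treg with adjusted p = 3.53e-06) and in Dohh-/- TH17 (-1.001 ± 0.19 with adjusted p = 0.000231), with no change past the test in the other Dohh-/- subsets. Pfkl, the liver-type subunit, rose in Dohh-/- TH1, TH2 and Treg (1.28 ± 0.27 in TH1 with adjusted p = 0.000521, 0.90 ± 0.27 in TH2 with adjusted p = 0.00928 and 0.92 ± 0.27 in Treg with adjusted p = 0.00616) and fell in Odc-/- Treg cells (-0.63 ± 0.21, adjusted p = 0.011). Pfkp in Dohh-/- TH17 cells passed the test but under 2-fold without Dohh-/- replicate 3 or WT replicate 1 or 3 (log2 fold change between -0.996 and -0.77). Pfkp in Odc-/- TH2 cells did not pass the test without Odc-/- replicate 2 (adjusted p = 0.143). Pfkl in Dohh-/- TH1 cells passed the test but under 2-fold without Dohh-/- replicate 2 (log2 fold change 0.81). Pfkl in Dohh-/- TH2 cells did not pass the test without WT replicate 3 (adjusted p = 0.0541). Pfkl in Odc-/- Treg cells did not pass the test without Odc-/- replicate 2 (adjusted p = 0.0542).

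Aldolase cleaves fructose 1,6-bisphosphate, and Aldoa, its main form outside liver and brain, was among the 3 members with the highest level per kilobase of exon. Aldoa (ENSMUSG00000030695.16, chr7:126795234-126800751, minus strand) was measured at high CPM in every library. In TH1 cells, Aldoa was at 3965, 3997, 4587 and 3738 CPM in WT and 3190.0, 1997, 2316 and 2424 CPM in Odc-/-. Aldoa in TH2 cells gave 3590.0, 4053, 4066 and 3932 CPM in WT and 2050.0, 2850.0 and 2637 CPM in Odc-/-. All Odc-/- libraries lay below all WT libraries. In TH17 cells, Aldoa was at 2952, 3317, 2999 and 2831 CPM in WT and 2414, 1200.0, 1810.0 and 1610.0 CPM in Odc-/-. Aldoa in Treg cells gave 2992, 3297, 3195 and 2633 CPM in WT and 1723, 711, 1489 and 901 CPM in Odc-/-. The same order held in TH17 and Treg cells, with Treg furthest apart. For Aldoa the log2 fold changes with SE, Odc-/- minus WT, were -0.71 ± 0.20 in TH1 (adjusted p = 0.00365), -0.64 ± 0.22 in TH2 (adjusted p = 0.014), -0.78 ± 0.20 in TH17 (adjusted p = 0.00256) and -1.33 ± 0.20 in Treg (adjusted p = 4.46e-06).

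In TH1 cells, Aldoa was at 4511, 4820.0 and 3977 CPM in WT and 3624, 4967 and 3020.0 CPM in Dohh-/-. Aldoa in TH2 cells gave 6170.0, 6335 and 5206 CPM in WT and 4899, 3793 and 3519 CPM in Dohh-/-. The TH1 groups overlapped, and the TH2 groups did not. In TH17 cells, Aldoa was at 4537, 4775 and 4900.0 CPM in WT and 2646, 2114 and 1580.0 CPM in Dohh-/-. Aldoa in Treg cells gave 4230.0, 5147 and 4251 CPM in WT and 4026, 3386 and 2344 CPM in Dohh-/-. Neither of these subsets overlapped. Aldoa differed by log2 fold changes with SE, Dohh-/- minus WT, of -0.20 ± 0.22 in TH1 (adjusted p = 0.48), -0.54 ± 0.22 in TH2 (adjusted p = 0.0564), -1.16 ± 0.23 in TH17 (adjusted p = 0.000266) and -0.48 ± 0.22 in Treg (adjusted p = 0.075). Aldoa thus passed the test in Dohh-/- TH17 cells and missed it in TH1, TH2 and Treg. Aldoa in Dohh-/- TH17 cells passed the test but under 2-fold without Dohh-/- replicate 3 (log2 fold change -0.97). Aldoa in Odc-/- TH2 cells did not pass the test without Odc-/- replicate 2 (adjusted p = 0.0874).

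Aldoc, the brain-type aldolase, fell in 6 of 8 comparisons. Its libraries (ENSMUSG00000017390.15, chr11:78322968-78327781, plus strand) spread widely within groups. Aldoc in TH1 cells gave 331, 298, 372 and 184 CPM in WT and 152, 10.2, 17.3 and 17.1 CPM in Odc-/-. In TH2 cells, Aldoc was at 284, 308, 296 and 223 CPM in WT and 18.3, 55 and 29.1 CPM in Odc-/-. Odc-/- TH1 replicate 1 stood close to WT replicate 4, and the groups did not overlap. Aldoc in TH17 cells gave 258, 274, 261 and 162 CPM in WT and 81.6, 6.84, 26.5 and 19 CPM in Odc-/-. In Treg cells, Aldoc was at 296, 305, 314 and 166 CPM in WT and 48.6, 4.34, 20.6 and 9.51 CPM in Odc-/-. WT replicate 4 was the lowest and Odc-/- replicate 1 the highest of its group in both subsets. For Aldoc the log2 fold changes with SE, Odc-/- minus WT, were -2.60 ± 0.72 in TH1 (adjusted p = 0.00353), -3.02 ± 0.82 in TH2 (adjusted p = 0.00294), -2.83 ± 0.73 in TH17 (adjusted p = 0.00295) and -3.71 ± 0.76 in Treg (adjusted p = 0.000218).

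Aldoc in TH1 cells gave 313, 314 and 286 CPM in WT and 25.4, 30.6 and 246 CPM in Dohh-/-. In TH2 cells, Aldoc was at 258, 281 and 235 CPM in WT and 151, 103 and 51.7 CPM in Dohh-/-. Dohh-/- TH1 replicate 3 was several times higher than the other two and close to WT. Aldoc in TH17 cells gave 312, 317 and 322 CPM in WT and 169, 133 and 64.2 CPM in Dohh-/-. In Treg cells, Aldoc was at 319.6, 397 and 342 CPM in WT and 176, 121 and 48.5 CPM in Dohh-/-. Dohh-/- replicate 3 was the lowest of its group in TH2, TH17 and Treg, and no groups overlapped. Aldoc differed by log2 fold changes with SE, Dohh-/- minus WT, of -1.59 ± 0.64 in TH1 (adjusted p = 0.0447), -1.34 ± 0.63 in TH2 (adjusted p = 0.0923), -1.37 ± 0.63 in TH17 (adjusted p = 0.0762) and -1.62 ± 0.64 in Treg (adjusted p = 0.0391). The TH2 and TH17 differences did not pass the test. Aldoc in Dohh-/- TH1 cells did not pass the test without Dohh-/- replicate 1 or 2 or WT replicate 1, 2 or 3 (adjusted p between 0.0686 and 0.173). Aldoc in Dohh-/- Treg cells did not pass the test without Dohh-/- replicate 2 or 3 or WT replicate 1, 2 or 3 (adjusted p between 0.0561 and 0.135).

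Tpi1, triosephosphate isomerase, fell in Odc-/- Treg cells (log2 fold change -0.98 ± 0.26, adjusted p = 0.00193) and rose in Dohh-/- TH1 and Treg cells (0.98 ± 0.24 in TH1 with adjusted p = 0.00188, 0.77 ± 0.24 in Treg with adjusted p = 0.00968), all under 2-fold. Tpi1 in Dohh-/- Treg cells did not pass the test without WT replicate 1 or 3 (adjusted p between 0.0601 and 0.0678).

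Glyceraldehyde-3-phosphate dehydrogenase opens the payoff phase and is often used as a reference gene. Gapdh (ENSMUSG00000057666.18, chr6:125161715-125166467, minus strand) fell in all 4 Odc-/- subsets and in Dohh-/- TH17 cells. In TH1 cells, Gapdh was at 6273, 6493, 7165 and 6393 CPM in WT and 5396, 3848, 4441 and 4739 CPM in Odc-/-. Gapdh in TH2 cells gave 6444, 7252, 7222 and 7069 CPM in WT and 4050.0, 5762 and 5432 CPM in Odc-/-. Every Odc-/- library lay below every WT library. In TH17 cells, Gapdh was at 4839, 5697, 5169 and 4838 CPM in WT and 4432, 2127, 3378 and 2944 CPM in Odc-/-. Gapdh in Treg cells gave 4656, 4960.0, 5023 and 4319 CPM in WT and 2986, 1385, 2757 and 1753 CPM in Odc-/-. Odc-/- replicate 1 was the highest of its group in TH17 and Treg, and no groups overlapped. For Gapdh the log2 fold changes with SE, Odc-/- minus WT, were -0.51 ± 0.18 in TH1 (adjusted p = 0.0187), -0.46 ± 0.20 in TH2 (adjusted p = 0.0485), -0.67 ± 0.18 in TH17 (adjusted p = 0.00417) and -1.09 ± 0.19 in Treg (adjusted p = 1.69e-05).

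In TH1 cells, Gapdh was at 6193, 6725 and 5834 CPM in WT and 6014, 6536 and 4751 CPM in Dohh-/-. Gapdh in TH2 cells gave 8748, 8306 and 6710.0 CPM in WT and 8576, 7044 and 5813 CPM in Dohh-/-. Both pairs of groups overlapped. In TH17 cells, Gapdh was at 6294, 6282 and 6250.0 CPM in WT and 4233, 3306 and 1206 CPM in Dohh-/-. Gapdh in Treg cells gave 5218, 5967 and 4540.0 CPM in WT and 5743, 5144 and 3356 CPM in Dohh-/-. The TH17 groups were apart, with Dohh-/- replicate 3 lowest, and the Treg groups overlapped. Gapdh differed by log2 fold changes with SE, Dohh-/- minus WT, of -0.12 ± 0.30 in TH1 (adjusted p = 0.767), -0.15 ± 0.30 in TH2 (adjusted p = 0.709), -1.11 ± 0.30 in TH17 (adjusted p = 0.00443) and -0.14 ± 0.30 in Treg (adjusted p = 0.706). Gapdh in Dohh-/- TH17 cells passed the test but under 2-fold without Dohh-/- replicate 3 (log2 fold change -0.72). Gapdh in Odc-/- TH1 cells did not pass the test without Odc-/- replicate 2 (adjusted p = 0.0687). Gapdh in Odc-/- TH2 cells did not pass the test without Odc-/- replicate 2 or 4 or WT replicate 2, 3 or 4 (adjusted p between 0.0583 and 0.233). Gapdh in Odc-/- Treg cells passed the test but under 2-fold without Odc-/- replicate 2 or 4 (log2 fold change between -0.996 and -0.92). The annotation holds 47 genes with a transcript near Gapdh in sequence, most of them pseudogenes. Their counts summed to 1.017% of the Gapdh counts in the Odc experiment and 0.577% in the Dohh experiment. For Pfkp the 1 such gene was Pitrm1, another protein-coding gene with 748 bases aligned at 100.0% identity. Its own counts equalled 11.9 and 11.4% of the Pfkp counts.

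Pgk1, phosphoglycerate kinase, fell in all Odc-/- subsets (-0.82 ± 0.22 in TH1 with adjusted p = 0.0029, -0.60 ± 0.24 in TH2 with adjusted p = 0.0359, -0.94 ± 0.22 in TH17 with adjusted p = 0.00146 and -1.40 ± 0.23 in Treg with adjusted p = 1.04e-05) and in Dohh-/- TH17 and Treg (-0.92 ± 0.22 in TH17 with adjusted p = 0.00156, -0.55 ± 0.22 in Treg with adjusted p = 0.0368). Pgam1, phosphoglycerate mutase, fell in all Odc-/- subsets by log2 fold changes of -0.69 to -0.43 (adjusted p = 3.16e-05 to 0.00484) and passed the test in no Dohh-/- subset (adjusted p = 0.0663 or higher). Pgk1 in Dohh-/- Treg cells did not pass the test without Dohh-/- replicate 2 or 3 or WT replicate 2 (adjusted p between 0.0813 and 0.135). Pgk1 in Odc-/- TH2 cells did not pass the test without Odc-/- replicate 2 or WT replicate 3 (adjusted p between 0.0533 and 0.172).

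Enolase is made from Eno1, the general form, Eno2, the neuronal form, and Eno3, the muscle form. Eno2 (ENSMUSG00000004267.16, chr6:124760053-124769673, minus strand) was low in every group and fell in 7 of 8 comparisons. In TH1 cells, Eno2 was at 41.5, 36.1, 37.6 and 24.1 CPM in WT and 14.8, 7.27, 6.9 and 7.84 CPM in Odc-/-. Eno2 in TH2 cells gave 27.3, 30.1, 34.5 and 22.6 CPM in WT and 5.57, 6.5 and 3.75 CPM in Odc-/-. Odc-/- TH1 replicate 1 was the highest of its group and lay below WT replicate 4. In TH17 cells, Eno2 was at 23.6, 21.1, 27.4 and 16.4 CPM in WT and 10.9, 13.9, 11.5 and 12.1 CPM in Odc-/-. Eno2 in Treg cells gave 30.7, 19, 27.2 and 8.39 CPM in WT and 9.51, 21.2, 8.93 and 19.4 CPM in Odc-/-. The TH17 groups were apart by a small margin, and the Treg groups overlapped. For Eno2 the log2 fold changes with SE, Odc-/- minus WT, were -1.93 ± 0.32 in TH1 (adjusted p = 2.54e-05), -2.44 ± 0.37 in TH2 (adjusted p = 7.57e-06), -0.87 ± 0.31 in TH17 (adjusted p = 0.0241) and -0.53 ± 0.31 in Treg (adjusted p = 0.137).

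In TH1 cells, Eno2 was at 29, 27.4 and 27.7 CPM in WT and 1.84, 3.31 and 5.41 CPM in Dohh-/-. Eno2 in TH2 cells gave 30.9, 29.5 and 33 CPM in WT and 6.71, 4.79 and 4.03 CPM in Dohh-/-. All Dohh-/- libraries lay far below all WT libraries. In TH17 cells, Eno2 was at 27.4, 25 and 31.9 CPM in WT and 4.26, 3.21 and 3.02 CPM in Dohh-/-. Eno2 in Treg cells gave 22.6, 24.3 and 27.9 CPM in WT and 1.66, 1.72 and 0.722 CPM in Dohh-/-. The Dohh-/- Treg libraries held the lowest Eno2 values of any group. Eno2 differed by log2 fold changes with SE, Dohh-/- minus WT, of -2.99 ± 0.29 in TH1 (adjusted p = 1.11e-07), -2.58 ± 0.28 in TH2 (adjusted p = 4.67e-07), -2.99 ± 0.29 in TH17 (adjusted p = 8.81e-08) and -4.18 ± 0.32 in Treg (adjusted p = 2.13e-09). The Treg fall was 18.1-fold in Dohh-/- cells and 1.44-fold in Odc-/- cells, where it did not pass the test. Eno2 in Odc-/- TH17 cells did not pass the test without Odc-/- replicate 1 or 3 or WT replicate 1 or 3 (adjusted p between 0.0513 and 0.0757).

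Eno3 was set apart by Treg cells, where WT held 129 ± 20.5 CPM and Odc-/- 59.5 ± 10.8 CPM (log2 fold change -1.12 ± 0.16, adjusted p = 1.15e-06). In Treg cells of the Dohh experiment it was at 153 ± 33.4 CPM in WT and 31.1 ± 1.57 CPM in Dohh-/- (-2.30 ± 0.26, adjusted p = 3.37e-07). All knockout libraries lay below all WT libraries in both tables. In TH2 and TH17 cells Eno3 rose instead, by 0.77 ± 0.18 in TH2 (adjusted p = 0.000632) and 0.80 ± 0.17 in TH17 (adjusted p = 0.000587) in Odc-/- and by 0.68 ± 0.25 in TH2 (adjusted p = 0.0335) and 0.65 ± 0.25 in TH17 (adjusted p = 0.0369) in Dohh-/-. Eno1 fell in Odc-/- Treg cells (-0.60 ± 0.20, adjusted p = 0.012) and rose in Dohh-/- TH1 and TH2 cells (0.91 ± 0.28 in TH1 with adjusted p = 0.00979, 0.75 ± 0.28 in TH2 with adjusted p = 0.031). Eno3 in Dohh-/- TH17 cells did not pass the test without Dohh-/- replicate 3 or WT replicate 1, 2 or 3 (adjusted p between 0.0644 and 0.179). Eno3 in Dohh-/- TH2 cells did not pass the test without Dohh-/- replicate 1 or 3 or WT replicate 1, 2 or 3 (adjusted p between 0.0605 and 0.117). Eno1 in Dohh-/- TH1 cells did not pass the test without Dohh-/- replicate 2 (adjusted p = 0.107). Eno1 in Dohh-/- TH2 cells did not pass the test without Dohh-/- replicate 1 or 3 or WT replicate 1, 2 or 3 (adjusted p between 0.0533 and 0.121). Eno1 in Odc-/- Treg cells did not pass the test without Odc-/- replicate 2 or 4 (adjusted p between 0.0522 and 0.0629).

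Pyruvate kinase ends glycolysis. Pkm (ENSMUSG00000032294.17, chr9:59656368-59679375, plus strand) was the third member given in full for its level. Pkm in TH1 cells gave 6209, 6155, 6121 and 6085 CPM in WT and 5699, 3771, 4554 and 4394 CPM in Odc-/-. In TH2 cells, Pkm was at 5050.0, 5339, 5084 and 5679 CPM in WT and 3443, 4963 and 4736 CPM in Odc-/-. The Odc-/- libraries lay below WT in both subsets, by a narrow margin. Pkm in TH17 cells gave 5202, 5645, 5240.0 and 4969 CPM in WT and 4856, 2551, 3458 and 3270.0 CPM in Odc-/-. In Treg cells, Pkm was at 4196, 4882, 4291 and 4616 CPM in WT and 2731, 1029, 2191 and 1369 CPM in Odc-/-. TH17 replicate 1 of Odc-/- lay just under the lowest WT library, and the Treg groups were far apart. For Pkm the log2 fold changes with SE, Odc-/- minus WT, were -0.42 ± 0.20 in TH1 (adjusted p = 0.0737), -0.27 ± 0.21 in TH2 (adjusted p = 0.28), -0.58 ± 0.20 in TH17 (adjusted p = 0.0188) and -1.30 ± 0.20 in Treg (adjusted p = 5.25e-06).

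Pkm in TH1 cells gave 5032, 5074 and 4705 CPM in WT and 5698, 7684 and 3560.0 CPM in Dohh-/-. In TH2 cells, Pkm was at 5252, 4895 and 4297 CPM in WT and 6080.0, 5239 and 5277 CPM in Dohh-/-. The TH1 and TH2 groups overlapped. Pkm in TH17 cells gave 4741, 4700.0 and 4916 CPM in WT and 3729, 2663 and 2341 CPM in Dohh-/-. In Treg cells, Pkm was at 3760.0, 4471 and 3965 CPM in WT and 4505, 4023 and 3075 CPM in Dohh-/-. Dohh-/- lay below WT in TH17 and overlapped with it in Treg cells. Pkm differed by log2 fold changes with SE, Dohh-/- minus WT, of 0.19 ± 0.22 in TH1 (adjusted p = 0.488), 0.20 ± 0.22 in TH2 (adjusted p = 0.488), -0.72 ± 0.23 in TH17 (adjusted p = 0.0114) and -0.07 ± 0.22 in Treg (adjusted p = 0.805). The difference passed the test in Odc-/- TH17 and Treg and in Dohh-/- TH17 cells. Pkm in Dohh-/- TH17 cells did not pass the test without Dohh-/- replicate 3 (adjusted p = 0.0733). Pkm in Odc-/- TH17 cells did not pass the test without Odc-/- replicate 2 (adjusted p = 0.0815).

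Lactate dehydrogenase turns pyruvate into lactate, with Ldha as the form of glycolytic tissue and Ldhb as that of heart. Ldhb (ENSMUSG00000030246.11, chr6:142490249-142507957, minus strand) fell by over 2-fold in all 4 Dohh-/- subsets. In TH1 cells, Ldhb was at 24.4, 29.6 and 27 CPM in WT and 3.17, 9.63 and 6.29 CPM in Dohh-/-. Ldhb in TH2 cells gave 37, 48.4 and 34.8 CPM in WT and 9.34, 11.5 and 7.32 CPM in Dohh-/-. Every Dohh-/- library lay below every WT library. In TH17 cells, Ldhb was at 24.9, 26.3 and 27.4 CPM in WT and 9.74, 11.1 and 7.1 CPM in Dohh-/-. Ldhb in Treg cells gave 19.3, 21.5 and 19.6 CPM in WT and 8.62, 7.37 and 5.77 CPM in Dohh-/-. The same held in TH17 and Treg cells. Ldhb differed by log2 fold changes with SE, Dohh-/- minus WT, of -2.11 ± 0.28 in TH1 (adjusted p = 4.28e-06), -2.09 ± 0.27 in TH2 (adjusted p = 3.84e-06), -1.48 ± 0.27 in TH17 (adjusted p = 0.000117) and -1.47 ± 0.27 in Treg (adjusted p = 0.00012).

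The libraries labelled Odc-/- gave another picture for Ldhb. In TH1 cells, Ldhb was at 23.6, 23.9, 30 and 21.2 CPM in WT and 21.1, 18, 23.2 and 15.3 CPM in Odc-/-. Ldhb in TH2 cells gave 33.7, 43.6, 35.7 and 45.8 CPM in WT and 28.8, 29.1 and 27 CPM in Odc-/-. The TH1 groups overlapped, and the TH2 groups did not. In TH17 cells, Ldhb was at 15.7, 13.6, 14.7 and 11.6 CPM in WT and 21.7, 20.9, 16.3 and 28.6 CPM in Odc-/-. Ldhb in Treg cells gave 14.2, 13.8, 12.8 and 10 CPM in WT and 16.8, 13.7, 18.6 and 19.9 CPM in Odc-/-. In TH17 cells all Odc-/- libraries lay above WT, and in Treg cells replicate 2 fell among the WT libraries. For Ldhb the log2 fold changes with SE, Odc-/- minus WT, were -0.35 ± 0.16 in TH1 (adjusted p = 0.0661), -0.49 ± 0.17 in TH2 (adjusted p = 0.0144), 0.66 ± 0.16 in TH17 (adjusted p = 0.00179) and 0.44 ± 0.16 in Treg (adjusted p = 0.0225). Ldhb therefore fell in Odc-/- TH2 cells and rose in Odc-/- TH17 and Treg cells. Ldhb in Odc-/- Treg cells did not pass the test without Odc-/- replicate 3 or 4 or WT replicate 4 (adjusted p between 0.0575 and 0.0818).

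Ldha, far more abundant, rose in Dohh-/- TH1 cells from 2076 ± 74.6 to 4397 ± 1527 CPM (log2 fold change 1.08 ± 0.20, adjusted p = 0.000193), and in Dohh-/- TH2 and Treg cells (0.96 ± 0.20 in TH2 with adjusted p = 0.00076, 0.86 ± 0.20 in Treg with adjusted p = 0.00133). It fell in Odc-/- Treg cells (-0.52 ± 0.16, adjusted p = 0.00733) and passed the test in no other Odc-/- subset. Slc16a1 (MCT1), a transporter of lactate and other monocarboxylates, rose in 6 of 8 comparisons, most in Dohh-/- Treg cells (1.07 ± 0.16, adjusted p = 1.13e-05), where 43.1 ± 3.74 CPM in WT and 90.5 ± 21.6 CPM in Dohh-/- were measured. Slc16a3 (MCT4), the exporter of glycolytic cells, fell in Odc-/- TH1 and Treg (-1.003 ± 0.38 in TH1 with adjusted p = 0.0274, -1.84 ± 0.39 in Treg with adjusted p = 0.000278) and in Dohh-/- TH17 (-1.505 ± 0.28, adjusted p = 0.000184), and rose in Dohh-/- TH2 (0.68 ± 0.28, adjusted p = 0.0496). Ldha in Dohh-/- TH1 cells passed the test but under 2-fold without Dohh-/- replicate 2 (log2 fold change 0.83). Slc16a1 in Dohh-/- Treg cells passed the test but under 2-fold without Dohh-/- replicate 3 or WT replicate 2 (log2 fold change between 0.81 and 0.95). Slc16a1 in Odc-/- TH1 cells did not pass the test without WT replicate 1 or 3 (adjusted p between 0.0758 and 0.0792). Slc16a1 in Odc-/- Treg cells did not pass the test without Odc-/- replicate 1 or WT replicate 1, 2 or 3 (adjusted p between 0.0538 and 0.0699). Slc16a3 in Dohh-/- TH2 cells did not pass the test without Dohh-/- replicate 1, 2 or 3 or WT replicate 2 or 3 (adjusted p between 0.0788 and 0.18). Slc16a3 in Odc-/- TH1 cells did not pass the test without Odc-/- replicate 2, 3 or 4 or WT replicate 1 (adjusted p between 0.0515 and 0.0921).

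The Pfkfb enzymes make and break fructose 2,6-bisphosphate, the activator of phosphofructokinase. Pfkfb4 (ENSMUSG00000025648.18, chr9:108991778-109032228, plus strand) fell in all 4 Odc-/- subsets and in Dohh-/- TH1 cells. In TH1 cells, Pfkfb4 was at 24.4, 23.3, 24.5 and 13.5 CPM in WT and 13.1, 5.03, 6.19 and 4.9 CPM in Odc-/-. Pfkfb4 in TH2 cells gave 21.1, 19.2, 20.7 and 17.9 CPM in WT and 5.17, 8.54 and 6.07 CPM in Odc-/-. Odc-/- TH1 replicate 1 lay just below WT replicate 4, and the groups were apart. In TH17 cells, Pfkfb4 was at 17.3, 15.8, 18.5 and 10.9 CPM in WT and 8.11, 4.08, 7.82 and 5.46 CPM in Odc-/-. Pfkfb4 in Treg cells gave 19.4, 15.4, 21.7 and 13.9 CPM in WT and 4.36, 3.73, 5.44 and 2.74 CPM in Odc-/-. No libraries overlapped in TH17 or Treg cells. For Pfkfb4 the log2 fold changes with SE, Odc-/- minus WT, were -1.56 ± 0.27 in TH1 (adjusted p = 3.66e-05), -1.58 ± 0.30 in TH2 (adjusted p = 7.39e-05), -1.30 ± 0.27 in TH17 (adjusted p = 0.00042) and -2.11 ± 0.28 in Treg (adjusted p = 6.59e-07).

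In TH1 cells, Pfkfb4 was at 28.1, 26.9 and 25.6 CPM in WT and 10.1, 6.79 and 10 CPM in Dohh-/-. Pfkfb4 in TH2 cells gave 29.4, 23.3 and 25.2 CPM in WT and 18.3, 21.8 and 14 CPM in Dohh-/-. The TH1 groups were far apart and the TH2 groups closer. In TH17 cells, Pfkfb4 was at 22.1, 25.3 and 21.4 CPM in WT and 8.83, 33.6 and 24.6 CPM in Dohh-/-. Pfkfb4 in Treg cells gave 19.3, 16.5 and 18.3 CPM in WT and 8.73, 15.2 and 12.4 CPM in Dohh-/-. The TH17 groups overlapped, with Dohh-/- libraries both below and above WT, and the Treg groups were apart. Pfkfb4 differed by log2 fold changes with SE, Dohh-/- minus WT, of -1.57 ± 0.32 in TH1 (adjusted p = 0.000358), -0.53 ± 0.30 in TH2 (adjusted p = 0.162), -0.03 ± 0.30 in TH17 (adjusted p = 0.932) and -0.57 ± 0.31 in Treg (adjusted p = 0.121). Pfkfb3, the form with high kinase activity, fell in all Odc-/- subsets (-1.16 ± 0.20 in TH1 with adjusted p = 4.37e-05, -0.67 ± 0.22 in TH2 with adjusted p = 0.0108, -0.81 ± 0.20 in TH17 with adjusted p = 0.00223 and -0.65 ± 0.20 in Treg with adjusted p = 0.00758) and in Dohh-/- TH1, TH2 and TH17 (-1.12 ± 0.20 in TH1 with adjusted p = 0.000144, -0.91 ± 0.20 in TH2 with adjusted p = 0.00108 and -1.07 ± 0.20 in TH17 with adjusted p = 0.000197). Pfkfb3 in Dohh-/- TH1 cells passed the test but under 2-fold without Dohh-/- replicate 2 (log2 fold change -0.86). Pfkfb3 in Dohh-/- TH17 cells passed the test but under 2-fold without WT replicate 3 (log2 fold change -0.92). Pfkfb3 in Odc-/- TH2 cells did not pass the test without Odc-/- replicate 3 (adjusted p = 0.0534).

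HIF-1 genes fell together in the libraries labelled Odc-/-: all 4 members passed the test in all 4 subsets, and 3, 3, 4 and 4 of them were called lower in TH1, TH2, TH17 and Treg. Of all genes 22.2 to 29.3% fell there and 7.21 to 13.6% were called lower. Hif1a (ENSMUSG00000021109.13, chr12:73901375-73947530, plus strand), which encodes HIF-1α, fell in 7 of 8 comparisons. Hif1a in TH1 cells gave 1288, 1191, 1031 and 1014 CPM in WT and 811, 647, 759.8 and 753 CPM in Odc-/-. In TH2 cells, Hif1a was at 1347, 1015, 1079 and 893 CPM in WT and 382, 532 and 609.8 CPM in Odc-/-. All Odc-/- libraries lay below all WT libraries. Hif1a in TH17 cells gave 2084, 1923, 1998 and 1517 CPM in WT and 998, 486, 429 and 567 CPM in Odc-/-. In Treg cells, Hif1a was at 577, 445, 518 and 353 CPM in WT and 195, 164, 124 and 176 CPM in Odc-/-. WT TH17 held the highest Hif1a levels of the table, and the groups did not overlap in TH17 or Treg. For Hif1a the log2 fold changes with SE, Odc-/- minus WT, were -0.61 ± 0.20 in TH1 (adjusted p = 0.0121), -1.09 ± 0.22 in TH2 (adjusted p = 0.000177), -1.60 ± 0.21 in TH17 (adjusted p = 1.79e-06) and -1.52 ± 0.21 in Treg (adjusted p = 8.37e-07).

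Hif1a in TH1 cells gave 1036, 908 and 859 CPM in WT and 349, 180.2 and 454 CPM in Dohh-/-. In TH2 cells, Hif1a was at 742, 622 and 812 CPM in WT and 409.9, 306 and 328 CPM in Dohh-/-. All Dohh-/- libraries lay below WT. Hif1a in TH17 cells gave 551, 534 and 439 CPM in WT and 234, 208 and 89.5 CPM in Dohh-/-. In Treg cells, Hif1a was at 236, 146 and 174 CPM in WT and 176, 159.7 and 147 CPM in Dohh-/-. The TH17 groups were apart, and the Treg groups overlapped. Hif1a differed by log2 fold changes with SE, Dohh-/- minus WT, of -1.51 ± 0.30 in TH1 (adjusted p = 0.000301), -1.06 ± 0.29 in TH2 (adjusted p = 0.00617), -1.52 ± 0.30 in TH17 (adjusted p = 0.000289) and -0.20 ± 0.29 in Treg (adjusted p = 0.575). Hif1a in Dohh-/- TH2 cells passed the test but under 2-fold without Dohh-/- replicate 2 or WT replicate 3 (log2 fold change between -0.98 and -0.97). Hif1a in Odc-/- TH2 cells passed the test but under 2-fold without Odc-/- replicate 2 or WT replicate 1 (log2 fold change between -0.99 and -0.93).

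Egln1 (PHD2) and Egln3 (PHD3) encode prolyl hydroxylases that sense oxygen, and both are themselves targets of HIF-1. Egln1 (ENSMUSG00000031987.6, chr8:124908587-124949324, minus strand) was called in every Odc-/- subset. In TH1 cells, Egln1 was at 388, 381, 403 and 316 CPM in WT and 242, 117, 129 and 158 CPM in Odc-/-. Egln1 in TH2 cells gave 439.6, 455, 463 and 374 CPM in WT and 152, 246 and 235 CPM in Odc-/-. Odc-/- replicate 1 was the highest of its group in TH1, and no groups overlapped. In TH17 cells, Egln1 was at 312, 345, 336 and 247 CPM in WT and 232, 90.5, 132 and 134 CPM in Odc-/-. Egln1 in Treg cells gave 319, 312, 331 and 251 CPM in WT and 144, 61.3, 116 and 77.2 CPM in Odc-/-. In TH17 cells Odc-/- replicate 1 came close to WT replicate 4. For Egln1 the log2 fold changes with SE, Odc-/- minus WT, were -1.203 ± 0.25 in TH1 (adjusted p = 0.000242), -1.04 ± 0.27 in TH2 (adjusted p = 0.00195), -1.07 ± 0.25 in TH17 (adjusted p = 0.0011) and -1.61 ± 0.25 in Treg (adjusted p = 6.95e-06).

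In TH1 cells, Egln1 was at 163, 149.5 and 133 CPM in WT and 164, 157 and 168 CPM in Dohh-/-. Egln1 in TH2 cells gave 232, 202 and 207 CPM in WT and 188, 159 and 159 CPM in Dohh-/-. The TH1 groups overlapped, and the TH2 groups were apart by a small margin. In TH17 cells, Egln1 was at 214, 208 and 275 CPM in WT and 140.5, 102 and 65.9 CPM in Dohh-/-. Egln1 in Treg cells gave 142, 139 and 132 CPM in WT and 166, 147 and 134 CPM in Dohh-/-. The TH17 groups were well apart, and the Treg groups overlapped. Egln1 differed by log2 fold changes with SE, Dohh-/- minus WT, of 0.14 ± 0.19 in TH1 (adjusted p = 0.562), -0.34 ± 0.19 in TH2 (adjusted p = 0.142), -1.18 ± 0.19 in TH17 (adjusted p = 3.67e-05) and 0.12 ± 0.19 in Treg (adjusted p = 0.612). TH17 was thus the one Dohh-/- subset in which Egln1 passed the test. Egln1 in Dohh-/- TH17 cells passed the test but under 2-fold without Dohh-/- replicate 3 (log2 fold change -0.92). Egln1 in Odc-/- TH17 cells passed the test but under 2-fold without Odc-/- replicate 2 (log2 fold change -0.90). Egln1 in Odc-/- TH2 cells passed the test but under 2-fold without Odc-/- replicate 2 (log2 fold change -0.85).

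Egln3 (ENSMUSG00000035105.5, chr12:54178981-54203860, minus strand) was called lower in all 8 comparisons, as was Pfkm. Egln3 in TH1 cells gave 1587, 1529, 1578 and 1020.0 CPM in WT and 845, 338, 357 and 433 CPM in Odc-/-. In TH2 cells, Egln3 was at 1157, 1047, 1163 and 721 CPM in WT and 254, 464 and 438 CPM in Odc-/-. No libraries overlapped, and WT replicate 4 was the lowest of its group in both subsets. Egln3 in TH17 cells gave 651, 743, 638 and 662 CPM in WT and 449.7, 229, 227 and 284 CPM in Odc-/-. In Treg cells, Egln3 was at 359, 359, 368 and 360.3 CPM in WT and 194, 115, 136 and 153 CPM in Odc-/-. WT Treg libraries lay within a narrow range, and all Odc-/- libraries lay below them. For Egln3 the log2 fold changes with SE, Odc-/- minus WT, were -1.53 ± 0.25 in TH1 (adjusted p = 2.42e-05), -1.41 ± 0.28 in TH2 (adjusted p = 0.000131), -1.18 ± 0.25 in TH17 (adjusted p = 0.000522) and -1.27 ± 0.25 in Treg (adjusted p = 0.000125).

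Egln3 in TH1 cells gave 926, 812 and 785 CPM in WT and 95, 80.3 and 115 CPM in Dohh-/-. In TH2 cells, Egln3 was at 758, 572 and 572 CPM in WT and 369.7, 240.2 and 178 CPM in Dohh-/-. All Dohh-/- libraries lay below WT, by the wider margin in TH1. Egln3 in TH17 cells gave 793, 802 and 996 CPM in WT and 139.5, 101 and 49.6 CPM in Dohh-/-. In Treg cells, Egln3 was at 403, 371 and 344 CPM in WT and 191, 139 and 80.7 CPM in Dohh-/-. The margin was wide in TH17 cells and smaller in Treg cells. Egln3 differed by log2 fold changes with SE, Dohh-/- minus WT, of -3.12 ± 0.33 in TH1 (adjusted p = 3.5e-07), -1.27 ± 0.31 in TH2 (adjusted p = 0.00245), -3.15 ± 0.33 in TH17 (adjusted p = 2.84e-07) and -1.45 ± 0.31 in Treg (adjusted p = 0.000633). The fall was 8.69-fold in Dohh-/- TH1 and 8.9-fold in TH17, against 2.42-fold in TH2 and 2.73-fold in Treg.

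Bnip3, a HIF-1 target that directs mitochondria to autophagy, moved in both directions. Its gene lies at chr7:138890836-138909519, minus strand (ENSMUSG00000078566.8). In TH1 cells, Bnip3 was at 418, 424, 439.6 and 318 CPM in WT and 245, 72.2, 107 and 128 CPM in Odc-/-. Bnip3 in TH2 cells gave 439.5, 436, 463 and 386 CPM in WT and 136, 286 and 233 CPM in Odc-/-. The Odc-/- libraries lay below WT without overlap. In TH17 cells, Bnip3 was at 359, 360.2, 329 and 279 CPM in WT and 216, 60.5, 106 and 96.3 CPM in Odc-/-. Bnip3 in Treg cells gave 315, 357, 305 and 251 CPM in WT and 151, 40.4, 118 and 56.2 CPM in Odc-/-. Odc-/- replicate 1 was the highest of its group in TH17 and Treg and still lay below WT. For Bnip3 the log2 fold changes with SE, Odc-/- minus WT, were -1.54 ± 0.36 in TH1 (adjusted p = 0.000952), -0.98 ± 0.39 in TH2 (adjusted p = 0.0344), -1.47 ± 0.36 in TH17 (adjusted p = 0.00206) and -1.75 ± 0.37 in Treg (adjusted p = 0.000248).

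In TH1 cells, Bnip3 was at 132, 107 and 119 CPM in WT and 183, 110.0 and 171 CPM in Dohh-/-. Bnip3 in TH2 cells gave 162, 151 and 177 CPM in WT and 342, 223 and 230.2 CPM in Dohh-/-. The TH1 groups overlapped, and in TH2 cells all Dohh-/- libraries lay above WT. In TH17 cells, Bnip3 was at 178, 164 and 234 CPM in WT and 88.8, 71.1 and 45.5 CPM in Dohh-/-. Bnip3 in Treg cells gave 113, 107 and 95.9 CPM in WT and 269, 204 and 187 CPM in Dohh-/-. Dohh-/- lay below WT in TH17 and above it in Treg cells, with no overlap. Bnip3 differed by log2 fold changes with SE, Dohh-/- minus WT, of 0.37 ± 0.23 in TH1 (adjusted p = 0.179), 0.70 ± 0.23 in TH2 (adjusted p = 0.0167), -1.48 ± 0.23 in TH17 (adjusted p = 2.95e-05) and 1.06 ± 0.23 in Treg (adjusted p = 0.000642). Bnip3 thus rose in Dohh-/- TH2 and Treg cells and fell in Dohh-/- TH17 cells. Bnip3 in Dohh-/- TH2 cells did not pass the test without Dohh-/- replicate 1 or WT replicate 2 (adjusted p between 0.0756 and 0.15). Bnip3 in Dohh-/- Treg cells passed the test but under 2-fold without Dohh-/- replicate 1 or WT replicate 3 (log2 fold change between 0.89 and 0.94). Bnip3 in Odc-/- TH2 cells did not pass the test without Odc-/- replicate 2 or 4 or WT replicate 1 or 3 (adjusted p between 0.0501 and 0.169).

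The pentose phosphate genes went the other way: 3 to 5 of the 6 rose in every comparison and none fell, where 23.8 to 32.9% of all genes rose. G6pdx and Pgd encode the NADPH-forming dehydrogenases, Pgls the lactonase between them, Rpia the ribose-5-phosphate isomerase, and Taldo1 and Tkt the enzymes that return pentoses to glycolysis. Beside the Dohh-/- rises stand the myeloid marker sums given above, with 9 of 9 tested markers called higher in TH17, 8 in TH2 and Treg and 3 in TH1, and their part in the rises was not tested. Taldo1 (ENSMUSG00000025503.5, chr7:141392199-141402968, plus strand) rose in all 8. Taldo1 in TH1 cells gave 78.4, 80.5 and 73.8 CPM in WT and 242, 352 and 159 CPM in Dohh-/-. In TH2 cells, Taldo1 was at 77.8, 86.2 and 65.1 CPM in WT and 209, 248 and 269 CPM in Dohh-/-. Every Dohh-/- library lay above every WT library, with TH1 replicate 3 the lowest of its group. Taldo1 in TH17 cells gave 83.7, 80.3 and 75.2 CPM in WT and 233, 319 and 518 CPM in Dohh-/-. In Treg cells, Taldo1 was at 93, 121 and 107 CPM in WT and 262, 311 and 285 CPM in Dohh-/-. The Dohh-/- TH17 libraries spread more than 2-fold and all lay above WT. Taldo1 differed by log2 fold changes with SE, Dohh-/- minus WT, of 1.69 ± 0.25 in TH1 (adjusted p = 1.53e-05), 1.66 ± 0.25 in TH2 (adjusted p = 2.21e-05), 2.16 ± 0.25 in TH17 (adjusted p = 9.52e-07) and 1.42 ± 0.25 in Treg (adjusted p = 6.8e-05).

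Taldo1 in TH1 cells gave 80.2, 85.5, 78.4 and 118 CPM in WT and 143, 145, 167 and 137 CPM in Odc-/-. In TH2 cells, Taldo1 was at 70, 85, 86.2 and 108 CPM in WT and 125, 156 and 144 CPM in Odc-/-. All Odc-/- libraries lay above WT, of which replicate 4 was the highest. Taldo1 in TH17 cells gave 68.3, 78.2, 77.6 and 111 CPM in WT and 132, 117, 151 and 130.0 CPM in Odc-/-. In Treg cells, Taldo1 was at 70.9, 94.2, 67.2 and 115 CPM in WT and 122, 114, 151 and 114 CPM in Odc-/-. The TH17 groups were apart, and the Treg groups met at WT replicate 4. For Taldo1 the log2 fold changes with SE, Odc-/- minus WT, were 0.71 ± 0.17 in TH1 (adjusted p = 0.00074), 0.70 ± 0.18 in TH2 (adjusted p = 0.00139), 0.66 ± 0.17 in TH17 (adjusted p = 0.00208) and 0.53 ± 0.17 in Treg (adjusted p = 0.00735). None of these rises reached 2-fold.

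Pgd (ENSMUSG00000028961.15, chr4:149149991-149166771, minus strand) rose by over 2-fold in all Dohh-/- subsets. In TH1 cells, Pgd was at 109.5, 117 and 105 CPM in WT and 289, 351 and 132 CPM in Dohh-/-. Pgd in TH2 cells gave 139, 124 and 112 CPM in WT and 204, 279 and 277 CPM in Dohh-/-. Dohh-/- TH1 replicate 3 lay close above WT and the other two far above it. In TH17 cells, Pgd was at 118, 126 and 110.1 CPM in WT and 210.3, 309 and 294 CPM in Dohh-/-. Pgd in Treg cells gave 96.8, 105 and 92.5 CPM in WT and 230.0, 309 and 310.1 CPM in Dohh-/-. All Dohh-/- libraries lay above WT. Pgd differed by log2 fold changes with SE, Dohh-/- minus WT, of 1.22 ± 0.24 in TH1 (adjusted p = 0.000294), 1.02 ± 0.24 in TH2 (adjusted p = 0.00176), 1.198 ± 0.24 in TH17 (adjusted p = 0.000342) and 1.53 ± 0.24 in Treg (adjusted p = 2.54e-05).

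In TH1 cells, Pgd was at 143, 156, 137 and 199 CPM in WT and 167, 186, 199 and 187 CPM in Odc-/-. Pgd in TH2 cells gave 143, 148, 147 and 166 CPM in WT and 229.9, 224 and 232 CPM in Odc-/-. The TH1 groups overlapped at WT replicate 4, and the TH2 groups were apart. In TH17 cells, Pgd was at 169, 171, 170.0 and 199 CPM in WT and 158, 132, 176 and 145 CPM in Odc-/-. Pgd in Treg cells gave 99.8, 113, 108 and 161 CPM in WT and 150.5, 136, 192 and 139.5 CPM in Odc-/-. Both subsets overlapped, with WT replicate 4 the highest WT library. For Pgd the log2 fold changes with SE, Odc-/- minus WT, were 0.22 ± 0.13 in TH1 (adjusted p = 0.155), 0.60 ± 0.14 in TH2 (adjusted p = 0.000672), -0.21 ± 0.13 in TH17 (adjusted p = 0.177) and 0.36 ± 0.13 in Treg (adjusted p = 0.0207). Pgd passed the test in Odc-/- TH2 and Treg cells. Pgd in Dohh-/- TH1 cells passed the test but under 2-fold without Dohh-/- replicate 2 (log2 fold change 0.93). Pgd in Dohh-/- TH2 cells passed the test but under 2-fold without Dohh-/- replicate 2 or 3 or WT replicate 2 or 3 (log2 fold change between 0.94 and 0.97). Pgd in Odc-/- Treg cells did not pass the test without Odc-/- replicate 3 or WT replicate 1, 2 or 3 (adjusted p between 0.0557 and 0.128).

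Rpia (ENSMUSG00000053604.5, chr6:70765720-70792232, minus strand) rose in all 8 comparisons and was called in 4, Odc-/- TH1 and Dohh-/- TH1, TH2 and TH17. Rpia in TH1 cells gave 30.6, 28.2, 28.6 and 41.9 CPM in WT and 55.6, 82.9, 73.9 and 75.4 CPM in Odc-/-. In TH2 cells, Rpia was at 32.3, 37.4, 37.4 and 44 CPM in WT and 80.3, 68.7 and 74.3 CPM in Odc-/-. All Odc-/- libraries lay above WT. Rpia in TH17 cells gave 35.6, 40.7, 36.2 and 57.4 CPM in WT and 66.3, 87, 74.9 and 79.8 CPM in Odc-/-. In Treg cells, Rpia was at 42, 57.4, 44.8 and 87 CPM in WT and 93.4, 84.1, 109 and 92.5 CPM in Odc-/-. The TH17 groups were apart, and WT Treg replicate 4 fell among the Odc-/- libraries. For Rpia the log2 fold changes with SE, Odc-/- minus WT, were 1.16 ± 0.19 in TH1 (adjusted p = 1.77e-05), 0.98 ± 0.20 in TH2 (adjusted p = 0.00014), 0.86 ± 0.18 in TH17 (adjusted p = 0.000489) and 0.71 ± 0.18 in Treg (adjusted p = 0.00135).

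Rpia in TH1 cells gave 35.9, 40.4 and 40.7 CPM in WT and 73.5, 92 and 73.6 CPM in Dohh-/-. In TH2 cells, Rpia was at 39.1, 42.2 and 39.7 CPM in WT and 82.5, 80.6 and 109.8 CPM in Dohh-/-. The groups were apart in both subsets. Rpia in TH17 cells gave 33.9, 31.4 and 31.8 CPM in WT and 67.2, 74 and 114 CPM in Dohh-/-. In Treg cells, Rpia was at 46.9, 48.1 and 49.5 CPM in WT and 85.5, 95.8 and 101 CPM in Dohh-/-. Dohh-/- replicate 3 was the highest of its group in TH17 and Treg, and no groups overlapped. Rpia differed by log2 fold changes with SE, Dohh-/- minus WT, of 1.03 ± 0.17 in TH1 (adjusted p = 4.75e-05), 1.17 ± 0.17 in TH2 (adjusted p = 1.44e-05), 1.39 ± 0.17 in TH17 (adjusted p = 1.7e-06) and 0.96 ± 0.17 in Treg (adjusted p = 7.04e-05). Rpia in Dohh-/- TH1 cells passed the test but under 2-fold without Dohh-/- replicate 2 or WT replicate 1 (log2 fold change between 0.91 and 0.99).

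G6pdx, which sets the entry of glucose 6-phosphate into the pathway, rose in all Dohh-/- subsets (0.77 ± 0.25 in TH1 with adjusted p = 0.0123, 1.03 ± 0.25 in TH2 with adjusted p = 0.00199, 0.59 ± 0.24 in TH17 with adjusted p = 0.0488 and 0.82 ± 0.24 in Treg with adjusted p = 0.00764) and in Odc-/- TH1 and TH2 (0.35 ± 0.15 in TH1 with adjusted p = 0.04, 0.36 ± 0.16 in TH2 with adjusted p = 0.0472). Tkt rose in all Dohh-/- subsets (0.80 ± 0.19 in TH1 with adjusted p = 0.00177, 0.69 ± 0.19 in TH2 with adjusted p = 0.00665, 0.61 ± 0.19 in TH17 with adjusted p = 0.0124 and 0.64 ± 0.19 in Treg with adjusted p = 0.00829) and passed the test in no Odc-/- subset (adjusted p = 0.445 or higher). Pgls rose in Odc-/- TH17 and Treg (0.43 ± 0.16 in TH17 with adjusted p = 0.0292, 0.54 ± 0.16 in Treg with adjusted p = 0.00514) and passed the test in no Dohh-/- subset (adjusted p = 0.123 or higher). G6pdx in Dohh-/- TH1 cells did not pass the test without Dohh-/- replicate 1 or 2 or WT replicate 3 (adjusted p between 0.0577 and 0.0917). G6pdx in Dohh-/- TH17 cells did not pass the test without Dohh-/- replicate 1 or 2 or WT replicate 1, 2 or 3 (adjusted p between 0.0685 and 0.217). G6pdx in Dohh-/- TH2 cells passed the test but under 2-fold without Dohh-/- replicate 2 or WT replicate 2 or 3 (log2 fold change between 0.92 and 0.99). G6pdx in Odc-/- TH1 cells did not pass the test without Odc-/- replicate 3 or 4 or WT replicate 1, 2 or 3 (adjusted p between 0.0676 and 0.135). G6pdx in Odc-/- TH2 cells did not pass the test without Odc-/- replicate 3 or 4 or WT replicate 1, 2 or 3 (adjusted p between 0.092 and 0.191). Tkt in Dohh-/- Treg cells did not pass the test without WT replicate 1 (adjusted p = 0.0676). Pgls in Odc-/- TH17 cells did not pass the test without Odc-/- replicate 3 or WT replicate 1 (adjusted p between 0.119 and 0.139).

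Whether the effect of a genotype differed between subsets was tested jointly over the 3 genotype by subset contrasts of each table. In the Odc experiment the effect differed for 9 of 34 members, where 34.8% of all genes passed, and in the Dohh experiment for 10, where 17.9% passed. Eno3 had the smallest adjusted p in both, 6.84e-07 and 8.65e-06, with its fall in Treg and rise in TH2 and TH17. In the Odc experiment Ldhb followed (adjusted p = 0.000436), lower in TH2 and higher in TH17 and Treg, then Eno2 (adjusted p = 0.00593) and Pgd (adjusted p = 0.00906). Pkm and Hif1a (both adjusted p = 0.0224) had their smallest differences in TH2 and TH1 respectively, and G6pdx, Pfkl and Slc2a1 passed as well (adjusted p = 0.0229, 0.0415 and 0.0498). In the Dohh experiment Bnip3 (adjusted p = 5.34e-05), Hk2 (adjusted p = 0.000166) and Slc16a3 (adjusted p = 0.000962) came next, each lower in TH17 and higher in at least 1 other subset. Egln3, Egln1, Slc2a1 and Pfkp (adjusted p = 0.0026, 0.00288, 0.00531 and 0.00715) fell furthest in TH17, though Egln3 fell nearly as far in TH1, and Pfkl and Eno2 had adjusted p = 0.0283 and 0.0423. The Odc count was 18 without replicate 1 of every Odc-/- subset (39.2% of all genes) and 5 with no filter on low counts (14.9%). Libraries of 1 genotype and number deviated together across subsets in the Odc experiment, with correlations of 0.206 to 0.576 in WT and 0.034 to 0.501 in Odc-/-, and less evenly in the Dohh experiment (0.005 to 0.314 and -0.265 to 0.644), although no source states that they share a mouse. With that number as a block within each genotype, chosen after seeing the data, 28 members differed in the Odc experiment, the 9 among them (52.9% of all genes), and 13 in the Dohh experiment (19%), where Eno2 no longer passed (adjusted p = 0.0697). The Dohh count was 16 without Dohh-/- TH17 replicate 1 and 18 without Dohh-/- TH1 replicate 3.

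The 2 tables share no libraries, so the difference between the Odc-/- and Dohh-/- effects was tested for each member and subset in 1 fit of both tables. The effects differed for 24 of 34 members in Treg cells, 13 in TH1, 10 in TH17 and 5 in TH2, where 26.2, 18.5, 21.4 and 15.7% of all genes differed. Relative to the background Treg cells held most such members, and TH2 cells stood near it. The TH1 count was 8 without Dohh-/- TH1 replicate 2, and the TH2 count 3 without Dohh-table WT TH2 replicate 3 and 2 without Odc-/- TH2 replicate 2. Ldhb and Taldo1 differed in all 4 subsets. For Ldhb the Odc-/- effect lay above the Dohh-/- effect by log2 differences of 1.75 ± 0.30 in TH1 (adjusted p = 4.93e-05), 1.62 ± 0.30 in TH2 (adjusted p = 0.000137), 2.08 ± 0.30 in TH17 (adjusted p = 1.38e-06) and 1.87 ± 0.30 in Treg (adjusted p = 5.62e-06). For Taldo1 it lay below, by -1.01 ± 0.29 in TH1 (adjusted p = 0.0112), -0.95 ± 0.30 in TH2 (adjusted p = 0.0246), -1.55 ± 0.29 in TH17 (adjusted p = 0.000109) and -0.93 ± 0.29 in Treg (adjusted p = 0.0132).

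Of the 24 members that differed in Treg cells, all but Eno2, Eno3 and Ldhb had the lower effect in Odc-/- cells. The largest such differences were -2.85 ± 0.49 (adjusted p = 1.61e-05) for Bnip3, -1.78 ± 0.37 (adjusted p = 0.000232) for Tpi1, -1.77 ± 0.34 (adjusted p = 9.96e-05) for Egln1, -1.61 ± 0.25 (adjusted p = 3.07e-06) for Hk1 and -1.59 ± 0.34 (adjusted p = 0.000445) for Pfkl. Eno2 and Eno3 went the other way, with the deeper fall in Dohh-/- Treg cells (3.60 ± 0.49 with adjusted p = 2.29e-07 and 1.14 ± 0.29 with adjusted p = 0.00223). In TH17 cells Slc2a1, Hk2, Egln3 and Eno2 had the lower effect in Dohh-/- cells (2.04 ± 0.33 with adjusted p = 9.86e-06, 1.48 ± 0.21 with adjusted p = 1.02e-06, 1.93 ± 0.41 with adjusted p = 0.000596 and 2.07 ± 0.45 with adjusted p = 0.000768). For 7 members, Slc2a3, Gpi1, Pfkm, Aldoc, Pfkfb3, Pgls and Rpia, the difference passed in no subset. For Pfkm the differences were -0.10 ± 0.39, -0.43 ± 0.40, 0.17 ± 0.39 and -0.78 ± 0.39 in TH1, TH2, TH17 and Treg (adjusted p = 0.143 or higher), and for Rpia 0.10 ± 0.25, -0.18 ± 0.26, -0.58 ± 0.25 and -0.28 ± 0.25 (adjusted p = 0.0888 or higher). Slc2a3 and Aldoc had wide errors, with SEs of 0.98 to 1.04, so that a difference could not be told at this number of libraries.

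**Figure D3:**
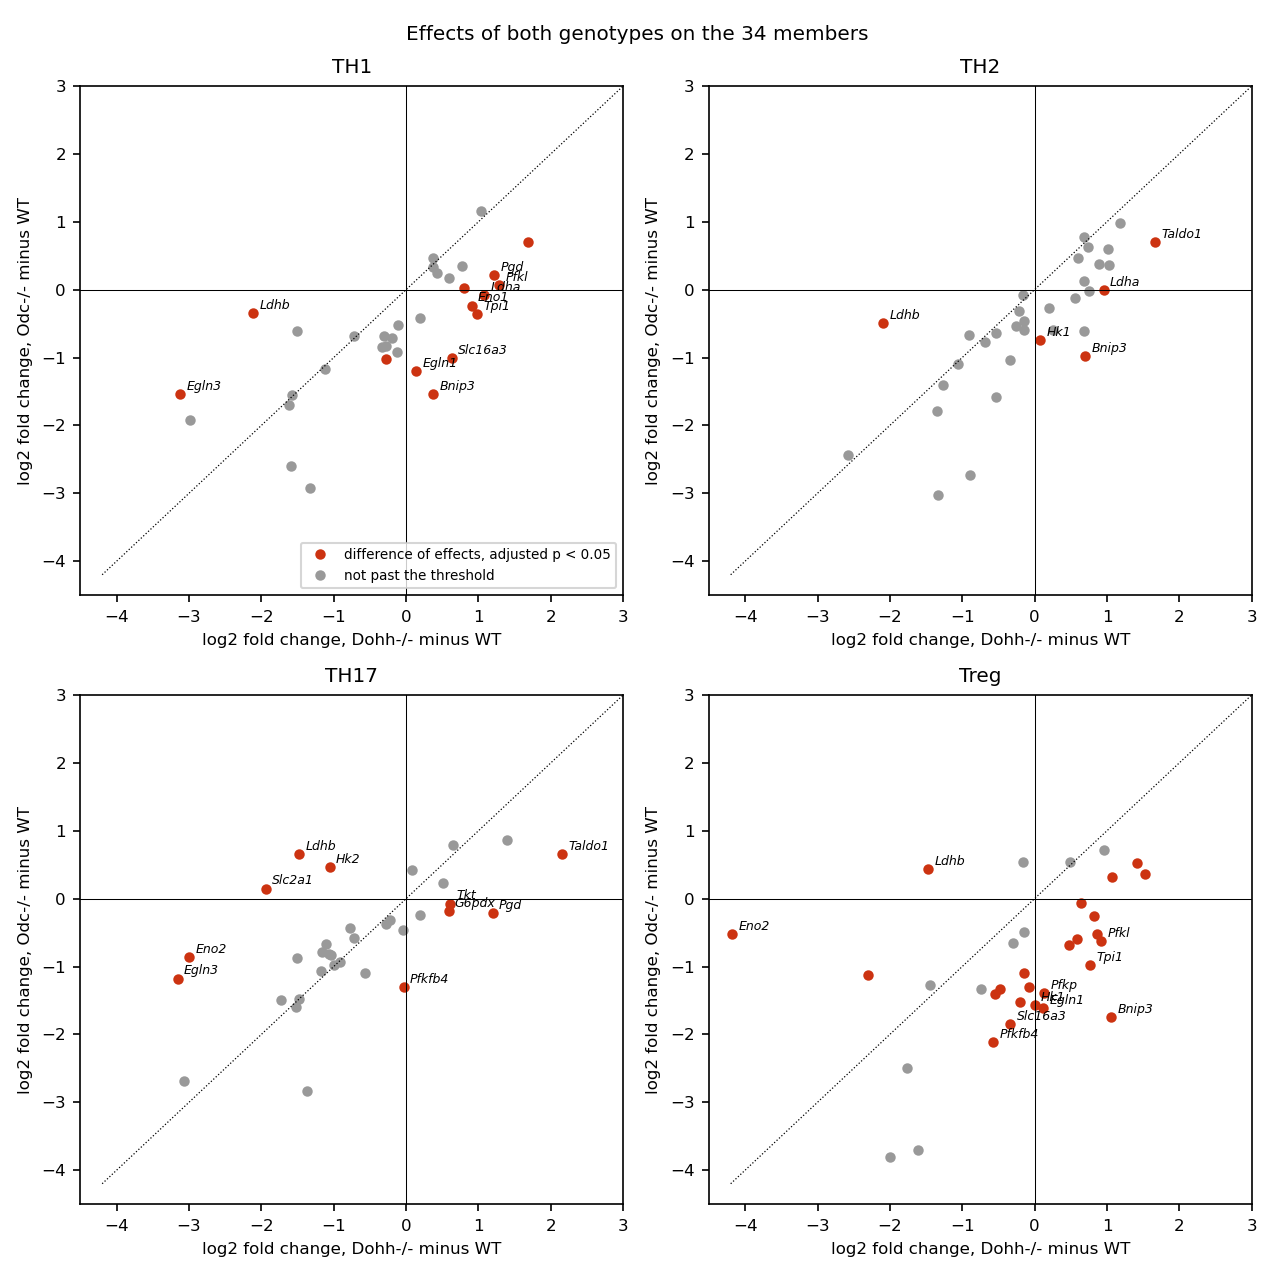
Each panel is 1 subset and each point 1 of the 34 members, with the Dohh-/- effect on the x axis and the Odc-/- effect on the y axis (log2 fold changes), red where the difference of effects passed adjusted p 0.05, and a dotted line of equal effects. In Treg cells 24 points are red, most of them below the line, and in TH2 cells 5.

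Shares of isoenzymes, each computed per library from levels per kilobase of exon and given without a test, show the balance within a step. Slc2a3 held 59.5% and 17.1% in TH1, 68.3% and 27.9% in TH2, 62.7% and 15.9% in TH17 and 62% and 14.6% in Treg of the glucose transporter level in WT and Odc-/- cells, with no overlap between groups in any subset. In the Dohh experiment its share was 37.7% and 29.1% in TH1, 40.6% and 29.5% in TH2, 33.5% and 18.6% in TH17 and 28.1% and 9.77% in Treg in WT and Dohh-/-, with overlap in TH1 cells only. Dohh-/- TH1 libraries ran from 11.5 to 63.6%, and the share of Slc2a1, the other transporter, lay 8.65 points above WT, 25.9 without Dohh-/- replicate 3, 0.18 without replicate 2 and -0.14 without replicate 1. The Hk2 share of hexokinase was higher with the Odc-/- label, to 53.7 ± 1.75% in Treg cells from 21.1 ± 1.97% in WT, and in every subset without overlap. With the Dohh-/- label it was higher in TH1, TH2 and Treg and lower in TH17 (52.8 ± 2.96% in WT and 44.1 ± 5.13% in Dohh-/-). The Pfkm share of phosphofructokinase was lower with both labels in every subset, from 24.5 ± 0.693% to 9.05 ± 1.38% in Odc-/- TH2 and from 28.4 ± 1.95% to 7.55 ± 0.955% in Dohh-/- Treg cells. Pfkl was higher instead, from 27.7 ± 1.52% to 54.4 ± 18.9% in Dohh-/- TH1 and from 31.6 ± 2.15% to 53.5 ± 4.27% in Odc-/- TH2 cells.

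Aldoc went from 7.28 ± 1.32% to 1.29 ± 0.827% of the aldolase level in Odc-/- Treg and from 6.48 ± 0.195% to 2.88 ± 0.983% in Dohh-/- Treg cells. Eno3 held 18.1 ± 2.17% in WT and 3.09 ± 0.801% in Dohh-/- of the enolase level in Treg cells of the Dohh experiment, and 16.4 ± 1.69% in WT and 12.7 ± 2.69% in Odc-/- in those of the Odc experiment, where the groups overlapped. Slc16a1 went from 19.9 ± 4.79% to 57.3 ± 18.9% of the lactate transporter level in Odc-/- Treg and from 8.91 ± 0.522% to 29 ± 5.63% in Dohh-/- TH17 cells, both without overlap. Ldhb was 2.67% and 0.323% in TH1, 3.54% and 0.451% in TH2, 2.5% and 0.795% in TH17 and 1.99% and 0.399% in Treg of lactate dehydrogenase in WT and Dohh-/- cells, always below WT without overlap. Its share in the Odc experiment was 1.52% and 1.26% in TH1, 2.45% and 1.8% in TH2, 0.957% and 1.8% in TH17 and 0.948% and 1.92% in Treg in WT and Odc-/-, above WT in TH17 and Treg, below it in TH2, and overlapping in TH1. Pfkfb4 was lower within its pair in Odc-/- Treg cells, from 25.6 ± 4.26% to 11.6 ± 4.63%.

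**Figure D4:**
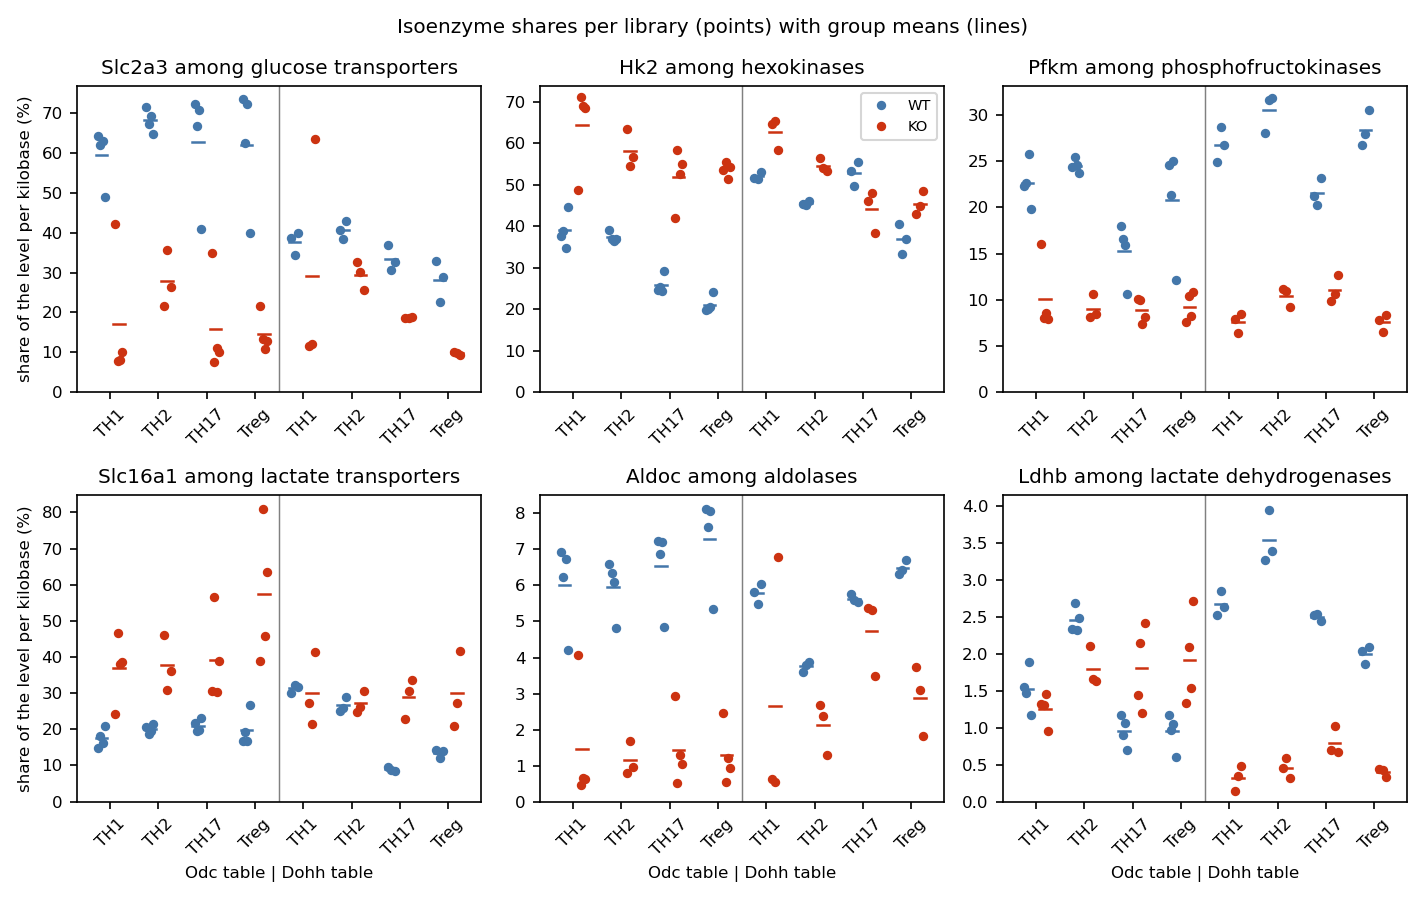
Each of 6 panels gives the share of 1 gene in the summed level per kilobase of its step (%), by subset (Odc experiment left, Dohh experiment right), with blue points for WT libraries, red points for libraries labelled knockout and lines for group means. Pfkm and, except in Dohh-/- TH1, Slc2a3 lie lower and, in the Odc experiment, Hk2 and Slc16a1 higher in the knockout groups.

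The 34 members together held 3.68 ± 0.0758% of all counts in WT TH1 cells of the Odc experiment and 2.55 ± 0.403% in Odc-/- (mean ± SD), with 3.61 ± 0.0972% and 2.76 ± 0.433% in TH2, 3.21 ± 0.144% and 2.02 ± 0.555% in TH17 and 2.98 ± 0.114% and 1.38 ± 0.463% in Treg cells. WT lay above Odc-/- in every subset, and no groups overlapped. In the Dohh experiment the shares were 3.25 ± 0.166% and 3 ± 0.416% in TH1, 3.34 ± 0.246% and 3.48 ± 0.196% in TH2, 3.27 ± 0.0973% and 2.01 ± 0.513% in TH17 and 2.77 ± 0.116% and 2.71 ± 0.463% in Treg cells, and the groups were apart in TH17 only. The 6 pentose phosphate genes held 0.0986 ± 0.00327% in WT and 0.182 ± 0.0276% in Dohh-/- TH17 cells, and 0.103 ± 0.00967% in WT and 0.106 ± 0.0112% in Odc-/- TH17 cells.

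**Figure D5:**
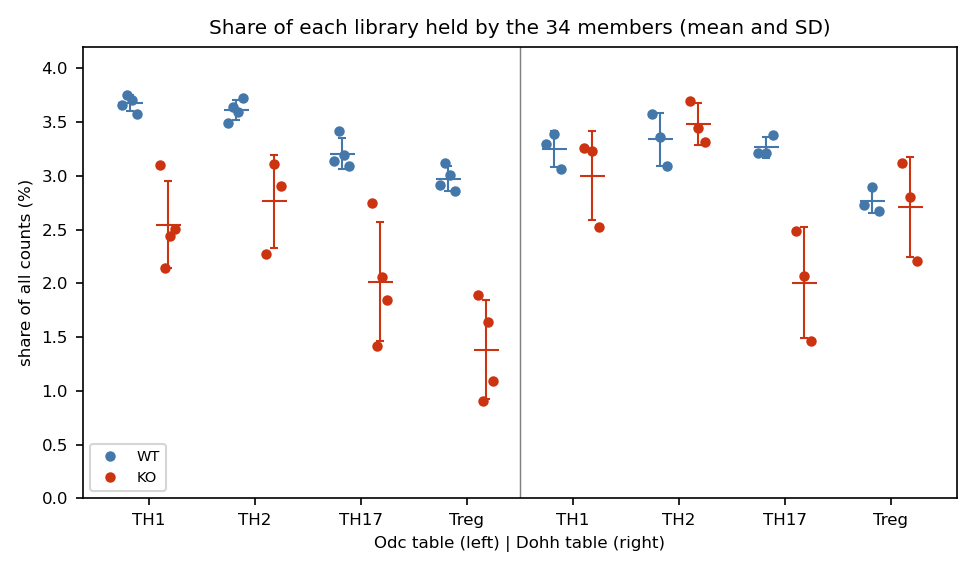
The y axis gives the percent of all counts of a library that fell on the 34 members, by subset (Odc experiment left, Dohh experiment right), with points for libraries, blue for WT and red for labelled knockout, and bars for mean and SD. Odc-/- Treg is lowest, with a mean of 1.38% against 2.98% in WT.

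WT subsets differed for 14 of 34 members in the Odc experiment, where 71.1% of all genes differed, and for 13 in the Dohh experiment, where 40.1% did. By the DESeq2 likelihood ratio test 27 and 25 did (71.9 and 66.4% of all genes), and with the block within genotype 28 and 14 (81.5 and 41%). Slc2a3 of the Odc experiment passed with the block alone: TH1 minus TH17 was 1.15 (adjusted p = 0.224), and 1.204 with the block (adjusted p = 0.00144), higher in TH1 in all 4 replicates. Eno3 was highest in Treg cells in both tables, with 129 ± 20.5 and 153 ± 33.4 CPM, against 22.1 ± 5.84 and 21.1 ± 4.84 CPM in TH1, and the log2 difference TH17 minus Treg was -3.34 (adjusted p = 1.22e-14) and -2.89 (adjusted p = 1.76e-07). In the Dohh experiment TH1, TH2 and TH17 did not differ in Eno3 beyond their spread. Hk2 went in the order TH1, TH2, TH17 and Treg in the Odc experiment, at 353 ± 56.9, 288 ± 13.5, 156 ± 14.6 and 99.7 ± 8.52 CPM, where TH1 and TH2 did not differ past the test (0.29 with adjusted p = 0.0881, adjusted p = 0.0464 with the block). Hk2 in the Dohh experiment was 230.5 ± 3.96, 171 ± 20.6, 212 ± 31.6 and 92.9 ± 10.8 CPM in the same subsets, and only Treg differed from each of the rest. Slc2a1 was 489.5 ± 25.9, 383 ± 16.5, 182 ± 21.5 and 163 ± 26.5 CPM in TH1, TH2, TH17 and Treg in the Odc experiment and 353 ± 36.9, 339.8 ± 56.9, 497 ± 101 and 222 ± 15.9 CPM in the Dohh experiment. TH17 differed past the test from Treg alone in the Dohh experiment (1.16 with adjusted p = 0.00589), and with the block TH1 and TH2 also differed from Treg (adjusted p = 0.022 and 0.0325). Hif1a was at 1131 ± 132, 1083 ± 192, 1880.0 ± 251 and 473 ± 97 CPM in the Odc experiment, highest in TH17, and 934 ± 91.3, 725 ± 96.1, 508 ± 60.3 and 185 ± 46.4 CPM in the Dohh experiment, highest in TH1, where TH1 and TH2 did not differ past the test (0.36 with adjusted p = 0.505). The tables hold different mice, and these levels were compared within each table only.

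Egln3 was 1429 ± 274, 1022 ± 208, 673 ± 47.4 and 362 ± 4.39 CPM in WT TH1, TH2, TH17 and Treg in the Odc experiment and 841 ± 75.1, 634 ± 108, 864 ± 115 and 373 ± 29.5 CPM in the Dohh experiment, lowest in Treg in both, although not past the test against Dohh-table TH2 (0.77 with adjusted p = 0.0682, adjusted p = 0.0261 with the block). Ldhb was highest in TH2 in both, at 39.7 ± 5.91 and 40.1 ± 7.32 CPM, but in the Dohh experiment TH2 differed past the test from Treg only (0.99 with adjusted p = 0.00509). Slc16a1 was 92.3 ± 9.16, 74.6 ± 10.6, 43.1 ± 2.47 and 43.1 ± 3.74 CPM in the Dohh experiment, where TH1 and TH2 each exceeded TH17 and Treg past the test, and 104 ± 15.2, 119 ± 9.49, 102 ± 6.32 and 91.1 ± 15.7 CPM in the Odc experiment, where TH2 exceeded Treg (0.39 with adjusted p = 0.00789) and, with the block, TH17 (adjusted p = 0.0388). Slc16a3 had its highest mean in TH17 in the Dohh experiment (532 ± 49.6 CPM), above TH1 and TH2 past the test but not above Treg (0.67 with adjusted p = 0.148), whereas in the Odc experiment it was 585 ± 34.9, 569 ± 13.1, 463 ± 19.4 and 447 ± 57.6 CPM, with no difference past the test (adjusted p = 0.672).

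A further 69 genes of these pathways, listed for their roles, gave 60 tested genes in the Odc experiment and 59 in the Dohh experiment. Of these 18, 17, 10 and 17 were called lower and 3, 5, 2 and 3 higher in Odc-/- TH1, TH2, TH17 and Treg, and 14, 10, 18 and 16 lower and 5, 4, 6 and 3 higher in Dohh-/-. The share of all genes called lower was 7.21 to 13.6% in the Odc and 11.6 to 15.2% in the Dohh comparisons, and the share called higher 8.35 to 13.9% and 14.3 to 17.5%. The 14 HIF-1 targets outside glycolysis made up 11, 9, 5 and 9 of the called-lower genes in Odc-/- and 6, 3, 10 and 5 in Dohh-/- cells. Vegfa, the angiogenic growth factor, was called lower in all 8 comparisons, by log2 fold changes of -1.91 to -1.54 in Odc-/- and -1.98 to -1.44 in Dohh-/- (adjusted p = 0.00137 or lower). Hif3a, a HIF α subunit gene, was also called lower in all 8, by -2.61 to -2.21 and -5.94 to -2.48 (adjusted p = 0.00171 or lower). Pdk1 and Pdk2, kinases that close pyruvate dehydrogenase, were called lower in 7 and 6 and fell in all 8, by -0.86 to -2.42 and -0.85 to -3.02. Ndrg1 and P4ha2 were called lower in 7, down to -3.65 and -3.28 in Odc-/- Treg, and Bnip3l, Adm and Slc2a8 in 6 each. Hk3, a further hexokinase, was called higher in 8, with group means of up to 29.5 CPM in Dohh-/- TH17, where the myeloid marker sum was highest. Myc, a driver of glycolytic genes, was called in no comparison, and fell under 2-fold in Odc-/- TH17 and Treg (-0.35 ± 0.12 in TH17 with adjusted p = 0.02, -0.33 ± 0.12 in Treg with adjusted p = 0.0209).

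Of 9 reference genes, such as Actb, B2m and Hprt, none was called in the Odc experiment, and 5, 5, 4 and 5 rose and none fell in TH1, TH2, TH17 and Treg, where 25.6 to 32.9% of all genes rose. In Dohh-/- cells 1, 3, 5 and 3 were called higher, where 14.3 to 17.5% of all genes were, among them Ppia in all 4 subsets (1.12 to 1.39) and Hprt at 0.997 to 1.17 on the log2 scale. Rplp0 fell in Dohh-/- TH17 and Treg (-0.59 ± 0.20 in TH17 with adjusted p = 0.0156, -0.58 ± 0.20 in Treg with adjusted p = 0.0156). Of 12 cell cycle genes, 6, 4, 4 and 2 rose and 2, 2, 0 and 7 fell in Odc-/- (adjusted p alone), where 25.6 to 32.9% and 22.2 to 29.3% of all genes did, and 10, 4, 6 and 12 rose and 0, 1, 0 and 0 fell in Dohh-/-, where 23.8 to 28.4% and 21.5 to 25% did. Their median log2 fold change in Treg, where the most members differed between genotype effects, was -0.54 in Odc-/- and 1.02 in Dohh-/-. The part of these shifts in the members' values was not tested.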

How the data were processed

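RNA from polarized CD4+ T cells was sequenced on day 4 as stranded poly(A) libraries. The submitters' processing notes name STAR, featureCounts, DESeq2 and deepTools and the mm10 (GRCm38) build. Versions, the annotation release and the strand setting are not given in the sources used here. The authors deposited 2 tables of raw counts per gene (whole reads, not normalized) for 47937 genes, of which 47224 matched GENCODE M21 by ID. One Odc-/- TH2 sample had no column and was not analysed here.

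Genes passing filterByExpr (13839 and 13897) were scaled by TMM and tested with the robust quasi-likelihood test of edgeR 4.0.16 (limma 3.58.1, R 4.3.3), with 1 mean for each of the 8 groups of a table. A joint fit of both tables compared the genotype effects over 14850 genes. Calls needed a log2 difference beyond 1 in size together with an adjusted p below 0.05. Such thresholds treat an abundant and a scarce member alike, but the spread of low counts is wider. CPM used TMM-scaled library sizes, and levels per kilobase used merged exon length. Python 3.11.15 (numpy 2.4.6, pandas 2.3.3, matplotlib 3.10.9) and minimap2 2.31-r1302, for near copies, were used besides, and DESeq2 1.42.0 as an alternative.

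The members, gene lists and tests were chosen with earlier results of these data known. Every member is named. Values in every library are given for members called in 1 direction in at least 4 of 8 comparisons and, of the rest, the 3 with the highest mean level per kilobase. Of the other pathway genes, those called in 1 direction in at least 6 comparisons are named, and Myc, and some genes of these lists are not reported here. Alternatives were RLE size factors, unscaled totals, other filters, DESeq2, a test against 2-fold, fits of the groups compared alone, a replicate block and each library left out in turn. The 4 alternatives that leave out libraries across all subsets, and a replicate block within each genotype across subsets, were chosen after seeing the data. Promoter sequences are from RefSeq (GRCm38.p6), in which 33 of 34 members had an entry.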

Additional observations from a re-analysis of the deposited data

Results flagged for a closer look

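In 14 of 119 groups of 4 libraries, 1 library stood apart from the rest of its group, by a gap to its neighbour that exceeded Dixon's critical value for a group of that size. Chance gives such a gap in about 1 group in 20. All 14 were in the Odc experiment, since the groups of the Dohh experiment hold 3 libraries and were not examined in this way. Replicate 1 of the Odc-/- TH1 libraries stood above its group for Slc2a3 (663 CPM), Pfkm (65.4 CPM), Aldoc (152 CPM), Eno2 (14.8 CPM) and Pfkfb4 (13.1 CPM). For Slc2a3 the Odc-/- replicate 1 stood apart in TH17 (318 CPM) and Treg cells (83.6 CPM) as well. WT replicate 4 stood below its group for Slc2a3 in TH17 (300.2 CPM), Aldoc in TH17 (162 CPM) and Treg (166 CPM), Pfkfb4 in TH1 (13.5 CPM) and Egln3 in TH1 (1020.0 CPM), and above it for Pgd in TH17 (199 CPM). WT Treg replicate 3 was apart for Egln3 (368 CPM).

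The genotype effect differed between subsets for 9 of 34 members in the Odc and 10 in the Dohh experiment (joint edgeR test, Benjamini-Hochberg adjustment), where 34.8 and 17.9% of all genes did. Both experiments gave such a difference for Eno3, Eno2, Slc2a1 and Pfkl (Odc adjusted p = 6.84e-07, 0.00593, 0.0498 and 0.0415, Dohh adjusted p = 8.65e-06, 0.0423, 0.00531 and 0.0283). In the Odc experiment it was also found for Ldhb, Pgd, Pkm, Hif1a and G6pdx (adjusted p = 0.000436, 0.00906, 0.0224, 0.0224 and 0.0229). In the Dohh experiment it was found for Bnip3, Hk2, Slc16a3, Egln3, Egln1 and Pfkp (adjusted p = 5.34e-05, 0.000166, 0.000962, 0.0026, 0.00288 and 0.00715). With the block within genotype, chosen after seeing the data, 28 and 13 members differed (52.9 and 19% of all genes). Eno2 then no longer passed in the Dohh experiment (adjusted p = 0.0697). Whether these differences between subsets themselves differ between Odc-/- and Dohh-/- was not tested.

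The Odc-/- and Dohh-/- effects differed in 4 subsets for Ldhb and Taldo1. They differed in 3 for Hk1, Ldha, Bnip3, Pgd and Tkt, and in 2 for Pfkl, Tpi1, Eno1, Eno2, Slc16a3, Pfkfb4, Egln1, Egln3 and G6pdx. In 1 subset they differed for Slc2a1, Hk2, Pfkp, Aldoa, Gapdh, Pgk1, Pgam1, Eno3, Pkm, Slc16a1 and Hif1a.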

How the results depend on the processing

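No change past the test was reversed by an alternative that gave a value. Of the member changes refitted with 1 library left out, 1161 stayed on their side of the thresholds, 116 lost the adjusted p and 40 the 2-fold change. Of 189 changes past the test, 20 no longer met a threshold they had met (the adjusted p or 2-fold) without a filter on low counts, 15 with only the 2 groups compared, 13 with unscaled library totals, 5 with RLE factors, 3 with DESeq2 and 2 with a mean count of at least 50. Unscaled totals shifted the median log2 fold change of all genes in Dohh-/- TH1 cells from 0.01 to -0.21, and calls there are relative to that shift.

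A test against 2-fold (glmTreat) called 1, 3, 1 and 8 members in Odc-/- TH1, TH2, TH17 and Treg cells and 5, 4, 8 and 5 in Dohh-/- cells. All the former and 4, 3, 6 and 4 of the latter were lower, where 3.47, 5.56, 1.61 and 4.09% of all genes were called lower in Odc-/- and 6.24, 4.55, 6.22 and 8.25% in Dohh-/- cells. Leaving out each library in turn gave 7 to 18 called members in Dohh-/- TH1, 7 to 14 in Odc-/- TH17 and 5 to 10 in Odc-/- TH2 cells. It gave 8 to 18 members with a subset difference in the Dohh experiment, and 8 to 17 in TH1 and 2 to 6 in TH2 cells whose Odc-/- and Dohh-/- effects differed. Without replicate 1 of every Odc-/- subset, chosen after seeing the data, 14 members were called in TH17 (18.3% of all genes) and 18 differed between subsets (39.2%). A fit without Dohh-/- replicates 2 and 3 of every subset, also chosen after seeing the data, leaves 1 Dohh-/- library per subset. That lone library is then assumed to vary like the other groups, so no counts from that fit are given. The DESeq2 likelihood ratio test gave 16 members with a subset difference in the Dohh experiment (26.5% of all genes), and 27 and 25 that differed between WT subsets in the Odc and Dohh experiments. With no filter on low counts 5 members differed between subsets in the Odc experiment. With only the 2 groups compared, 12 members passed the adjusted p in Dohh-/- TH1 cells, and at an adjusted p below 0.01, 16 did in Odc-/- TH2 cells. The cause of these shifts was not tested, beyond the stricter thresholds and smaller groups themselves.

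Lengths of the longest transcript, in place of merged exons, moved some isoenzyme shares. The knockout minus WT difference in percentage points was then -26.0 for Hk1 in Odc-/- Treg. For Aldoa it was 3.08, 3.27 and 3.86 in Odc-/- TH2, TH17 and Treg and 2.32 in Dohh-/- Treg. For Eno1 it was 1.18, 0.92 and 7.98 in Dohh-/- TH1, TH2 and Treg, and for Ldha 1.56, 2.06, 1.14 and 1.06 in Dohh-/- TH1, TH2, TH17 and Treg.

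Libraries of the same number in WT and knockout deviated together weakly (correlations from -0.086 to 0.196 in the Odc and from -0.027 to 0.136 in the Dohh experiment), so across genotypes they share only a number. With the replicate number as a block, 12, 6, 11 and 18 members were called in Odc-/- TH1, TH2, TH17 and Treg (22.1, 23.9, 16.3 and 24.4% of all genes). In Dohh-/- cells 13, 9, 19 and 11 were called (29.2, 26.1, 31.4 and 32.8%), and 3 of 189 changes no longer met such a threshold. Under the block 13 and 12 members differed between subsets in the Odc and Dohh experiments (43.2 and 19.2% of all genes). Between WT subsets 18 and 15 differed (76.7 and 41.3%). Between the Odc-/- and Dohh-/- effects 15, 6, 11 and 24 differed, where the share of all genes was not counted. A block within each genotype was chosen after seeing the data. With it 28 members of the Odc experiment differed between subsets in their effect and 28 between WT subsets (52.9 and 81.5% of all genes), against 9 and 14. In the Dohh experiment 13 and 14 did (19 and 41%). With 3 or 4 libraries a group, precision was lowest for members that varied widely between libraries, such as Slc2a3 and Aldoc.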

Other observations

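Among other pathway genes, the 14 HIF-1 targets outside glycolysis had median log2 fold changes of -1.48, -1.62, -0.89 and -1.47 in Odc-/- TH1, TH2, TH17 and Treg and -0.92, -0.41, -1.59 and -0.73 in Dohh-/-. Over all genes the medians lay between -0.002 and 0.07. The 6 tested pentose phosphate genes outside the members had 1 called higher in each Odc-/- subset and 1 called lower in each Dohh-/- subset, and by the adjusted p alone 3, 3, 2 and 5 rose and 1, 0, 0 and 0 fell in Odc-/- cells and 2, 1, 2 and 2 rose and 1, 1, 1 and 2 fell in Dohh-/- cells. Of the 10 genes of pyruvate entry into mitochondria, 2, 2, 2 and 1 were called lower and 0, 1, 0 and 0 higher in Odc-/- TH1, TH2, TH17 and Treg, and of 9 tested in the Dohh experiment 1, 2, 2 and 2 lower and 1, 0, 1 and 0 higher. Of all genes 7.21 to 15.2% were called lower and 8.35 to 17.5% higher. Pdk1 and Pdk2 made up most lower calls (7 and 6 comparisons). By the adjusted p alone, 4, 5, 1 and 1 of these genes rose and 2, 3, 3 and 3 fell in Odc-/-, and 3, 4, 3 and 3 rose and 2, 2, 2 and 3 fell in Dohh-/-. Across all genes 23.8 to 32.9% rose and 21.5 to 29.3% fell. The lists were drawn up with earlier results known.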
